A study of Mus musculus with 12 samples.

Results

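RNA from livers of chow-fed mice was compared with that from livers of mice given a high-fat diet with added cholesterol. All animals were male C57/Bl6J mice that started their diet at 4 weeks of age and stayed on it for 16 weeks. The chow group has 4 libraries, and the group on the high-fat diet (HFD), which held 0.2% cholesterol by weight, has 4. A further 4 libraries, from mice on that same diet with 0.006% SC-435, which blocks ASBT, the transporter that takes up bile acids in the ileum, entered only the shared estimate of spread. Every gene in the deposited table was a candidate. One transcript was kept per symbol, the one with the highest mean over the 12 libraries, which gave 23991 genes, and 12203 of these had at least 1 RPM (reads per 1000000 of the library) in at least 4 of the 12 libraries and were tested. A gene near 0 in chow could pass this minimum through the libraries on the high-fat diet alone, with or without SC-435. A gene near 0 in those needed all 4 chow libraries. The labels do not state that each library came from a separate animal, so the p-values rest on the spread among these libraries alone, which could be technical. In bulk liver, fewer cells of a type and less RNA per cell cannot be told apart.

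The liver takes up fatty acids, makes new ones, stores them as triglyceride in lipid droplets, burns them in mitochondria and peroxisomes, or exports them in lipoproteins. Cholesterol that reaches the liver is sensed by 2 opposed systems. Oxysterols activate the nuclear receptor LXR, whose targets export sterols and include Srebf1, the driver of fatty acid synthesis, while sterol-rich membranes hold back SREBP2, the driver of sterol synthesis and uptake. The diet used here bears on lipid storage, sterol handling and bile acid synthesis, and steatotic livers are also known for changes in their immune cells.

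Levels are given as RPM, reads divided by the library total and not by gene length, so a level can be compared between libraries for 1 gene and not between genes. Values of single libraries are listed in the order chow 1, chow 2, chow C7 and chow 4, then HFD 1 to HFD 4, and means are ± SD (n = 4 libraries a group). Changes are HFD minus chow on the log2(RPM + 0.5) scale, which understates the change of low genes. A gene was called, and is said to have risen or fallen, at a two-sided limma p under 0.05 after Benjamini-Hochberg adjustment over all genes tested. The SE of a change is that of the fit to all 12 libraries, moderated toward genes of like level. It can therefore exceed what the SDs of chow and HFD imply. Library totals were 10668202 to 11353338 reads in chow and 10314126 to 13244195 in HFD, so 1 read was worth 0.0755 to 0.0970 RPM. The markers of hepatocytes were abundant in every library, with a summed level of 52145 to 55702 RPM in chow and 40277 to 55726 RPM in HFD. The first principal component of the 8 libraries, with 44.2% of the variance, separated the diets. The second, with 16.1%, set HFD 1 at 32.2 and HFD 4 at -24.5, with the other 6 libraries between -7.26 and 3.70. Hepatocyte markers gave 6 calls in all, but 1 without HFD 2 or with no minimum, 2 without chow 2 or 4 or HFD 3 and 3 without chow 1.

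The diet was accompanied by changes in 1319 of the 12203 genes tested (10.8%), of which 868 rose (7.11% of those tested) and 451 fell (3.7%). With equal library medians, 794 were called higher and 544 lower. In 1194 of the 1319 the HFD libraries and the chow libraries did not overlap, as in 2187 of all genes tested (17.9%). The median log2 change over all genes tested was 0.05. A change of at least 2-fold on the log2(RPM + 0.5) scale was reached by 346 of the called genes, 224 higher and 122 lower. Leaving out 1 library at a time gave between 781 calls (without chow 2) and 1371 (without HFD 1), and 637 of the 1319 genes were called in the same direction in all 8 such fits. The count was 832 without HFD 2, 830 without HFD 3 and 865 without chow 1. Without both HFD 1 and HFD 4, the libraries that stood apart, it was 1027.

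**Figure D1:**
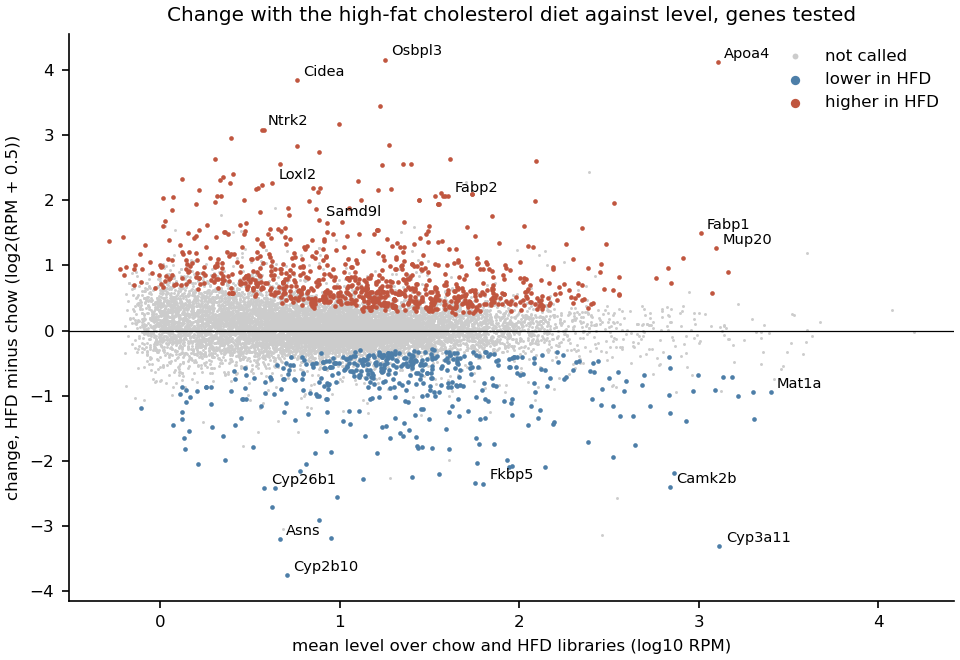
Each point is 1 of the 12203 genes tested, with the mean level over the 4 chow and 4 HFD libraries on the horizontal axis (log10 RPM) and the change, HFD minus chow, on the vertical axis (log2(RPM + 0.5)). The 868 genes called higher and 451 called lower are coloured, and Apoa4 (log2 change 4.12) and Cyp3a11 (-3.30) combine a high level with a change of more than 3.

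The largest rise among called genes was that of Osbpl3, an oxysterol-binding protein of contacts between membranes. Osbpl3 was at 1.20, 0.469, 1.59 and 2.31 RPM in the chow libraries and 13, 39.0, 44.1 and 40.7 RPM in the HFD libraries. HFD 1 was the lowest HFD library and still lay above every chow library (log2 change 4.16 with SE 0.35, limma adjusted p = 1.00e-05). Apoa4, an apolipoprotein carried on triglyceride-rich particles, was at 195, 123, 129 and 86.5 RPM in the chow libraries and 1145, 2312, 2776 and 3424 RPM in the HFD libraries. Every HFD library exceeded every chow library, and the mean was 18.1 times as high (log2 change 4.12 with SE 0.41, limma adjusted p = 4.48e-05). Cidea, a lipid droplet protein known from brown fat, was at 0.0920, 0, 0 and 0.185 RPM in the chow libraries and 2.0, 21.6, 19.0 and 3.47 RPM in the HFD libraries. Only 3 reads fell in Cidea over the chow libraries against 519 over the HFD libraries, a ratio of 164 (exact 95% interval 55.8 to 798) that covers counting error only, and HFD 2 and HFD 3 were far above HFD 1 and HFD 4 (log2 change 3.84 with SE 0.71, limma adjusted p = 0.00412). Each chow library held less than 1 RPM of Cidea, so it was tested only because of the libraries on the high-fat diet. A gene that overlaps Cidea, B430212C06Rik, holds reads in total equal to 28.5% of those of Cidea, and how many of them lie in the shared stretch was not measured.

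Other genes with large rises belong to no single pathway. Nrep, a protein named for regenerating neurons, stood at 2.21 ± 0.359 RPM in chow and 31.2 ± 14.9 RPM in HFD. Nrep had a log2 change of 3.44 with SE 0.50 (limma adjusted p = 7.59e-04). Wdfy4, a protein that dendritic cells need for cross-presentation, was at 1.75, 1.22, 1.76 and 1.02 RPM in the chow libraries and 6.86, 22.9, 19.1 and 25.1 RPM in the HFD libraries. The groups did not overlap and HFD 1 was again the lowest of its group (log2 change 3.17 with SE 0.32, limma adjusted p = 5.60e-05). Gpc1, a cell-surface heparan sulfate proteoglycan, averaged 4.25 ± 1.01 RPM in chow and 33.1 ± 4.23 RPM in HFD (log2 change 2.84 with SE 0.24, limma adjusted p = 1.00e-05), and Aqp4, a water channel, averaged 1.03 ± 0.359 RPM in chow and 10.5 ± 2.67 RPM in HFD. Aqp4 had a log2 change of 2.84 with SE 0.29 (limma adjusted p = 6.49e-05). Ntrk2, the receptor of brain-derived neurotrophic factor, was at 0.0920, 0.187, 1.5 and 0.0925 RPM in the chow libraries and 4.48, 6.4, 6.06 and 10.6 RPM in the HFD libraries, so chow C7 stood above the other chow libraries while all 4 HFD libraries were higher still. Ntrk2 had a log2 change of 3.08 with SE 0.34 (limma adjusted p = 1.15e-04). Gbp10, an interferon-induced guanylate-binding protein, was at 1.20, 0.844, 1.67 and 0.925 RPM in the chow libraries and 33.1, 12.6, 3.90 and 6.8 RPM in the HFD libraries, with HFD 1 the highest library. Gbp10 had a log2 change of 2.74 with SE 0.54 (limma adjusted p = 0.00601). Tmprss11f, a transmembrane serine protease, rose from 8 reads over the chow libraries to 180 over the HFD libraries, a ratio of 21.3 (exact 95% interval 10.6 to 50.2) by reads (log2 change 2.64 with SE 0.29, limma adjusted p = 9.98e-05). The unnamed transcript 2310034O05Rik went from 4 reads to 238, a ratio of 56.4 (exact 95% interval 21.7 to 209) (log2 change 2.95 with SE 0.42, limma adjusted p = 7.13e-04). Cfd, which encodes the complement protease adipsin, was at 0, 0, 1.32 and 0.0925 RPM in the chow libraries and 1.81, 12, 11.7 and 3.47 RPM in the HFD libraries. Cfd had a log2 change of 3.09 with SE 0.62 (limma adjusted p = 0.00658). Gbp10 lost the call under voom (limma adjusted p 0.088). Tmprss11f and 2310034O05Rik held less than 1 RPM in every chow library, and Ntrk2 and Cfd in every chow library but chow C7. Tmprss11f, 2310034O05Rik, Ntrk2 and Cfd were therefore tested only because of the libraries on the high-fat diet.

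The largest falls were those of Cyp2b10 and Cyp3a11, cytochrome P450 enzymes that the nuclear receptors CAR and PXR induce. Cyp2b10 was at 21.0, 6.09, 4.23 and 8.69 RPM in the chow libraries and 0.0952, 0.291, 0 and 0.302 RPM in the HFD libraries. All HFD libraries were near 0, with 8 reads in total against 435 in chow, a ratio of 57.4 (exact 95% interval 28.9 to 134) by reads (log2 change -3.75 with SE 0.39, limma adjusted p = 6.49e-05). Cyp3a11 was at 2719.8, 2603, 1907 and 2094 RPM in the chow libraries and 105, 187, 302 and 507 RPM in the HFD libraries. The highest HFD library, HFD 4, was still far below the lowest chow library (log2 change -3.30 with SE 0.42, limma adjusted p = 3.28e-04). Cyp3a59 of the same subfamily averaged 94.7 ± 9.90 RPM in chow and 18.6 ± 3.15 RPM in HFD. Cyp3a59 had a log2 change of -2.33 with SE 0.29 (limma adjusted p = 2.52e-04). Near-identical members of these P450 families may share reads, so the split of reads between them is uncertain.

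Asns, asparagine synthetase, was at 9.02, 14.3, 8.90 and 3.05 RPM in the chow libraries and 0.0952, 0.388, 0.581 and 0.680 RPM in the HFD libraries, with no overlap between the groups. Asns had a log2 change of -3.19 with SE 0.49 (limma adjusted p = 0.00127). Plcd3, a phospholipase C, was at 22.6, 20.1, 10.7 and 13.1 RPM in the chow libraries and 1.43, 1.45, 1.08 and 1.28 RPM in the HFD libraries. Plcd3 had a log2 change of -3.18 with SE 0.22 (limma adjusted p = 3.99e-06). The gene Acbd4, which overlaps Plcd3 and holds more reads, was not called (log2 change -0.10). Cyp26a1 and Cyp26b1 degrade retinoic acid, and both fell. Cyp26a1 averaged 7.69 ± 1.06 RPM in chow and 1.08 ± 0.460 RPM in HFD (log2 change -2.41 with SE 0.46, limma adjusted p = 0.005) and Cyp26b1 averaged 6.62 ± 1.70 RPM in chow and 0.995 ± 0.936 RPM in HFD. Cyp26b1 had a log2 change of -2.41 with SE 0.56 (limma adjusted p = 0.0141). Fkbp5, a co-chaperone of the glucocorticoid receptor and one of its targets, was at 123, 102, 107 and 89.7 RPM in the chow libraries and 18, 19.0, 15.4 and 31.4 RPM in the HFD libraries, so that each chow library had more than each HFD library. Fkbp5 had a log2 change of -2.35 with SE 0.30 (limma adjusted p = 3.02e-04). Ptchd4, a patched-domain protein, averaged 16.8 ± 2.29 RPM in chow and 2.55 ± 0.954 RPM in HFD. Ptchd4 had a log2 change of -2.55 with SE 0.41 (limma adjusted p = 0.00165). Camk2b, a calcium-dependent kinase, averaged 1161 ± 126 RPM in chow and 219.9 ± 25.6 RPM in HFD (log2 change -2.40 with SE 0.51, limma adjusted p = 0.00932), and Enho, the gene of the secreted peptide adropin, averaged 13.7 ± 2.43 RPM in chow and 1.74 ± 1.72 RPM in HFD with HFD 4 at 4.30 RPM the highest HFD library. Enho had a log2 change of -2.90 with SE 0.41 (limma adjusted p = 6.18e-04). E030018B13Rik fell as well (log2 change -2.70 with SE 0.53, limma adjusted p = 0.00618), but lies over Klf13, which holds far more reads and was not called. Cyp26b1 and Camk2b lost the call with only HFD 2 and HFD 3 in HFD (limma adjusted p 0.0545 to 0.0743). Across the alternatives other than leaving out 1 library, the lowest limma adjusted p was 0.00169 for Cyp26b1 and 3.79e-06 for Camk2b.

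**Figure D2:**
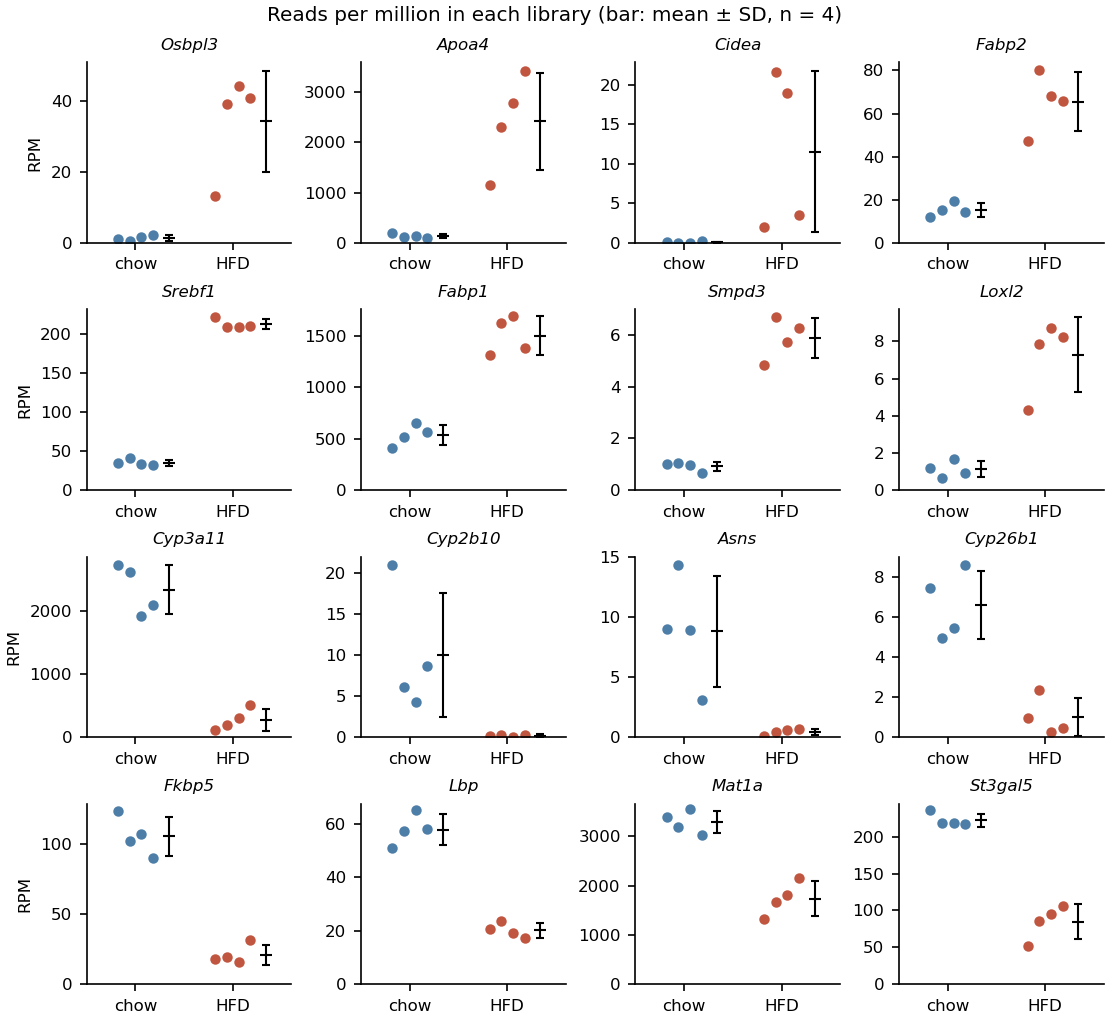
Level in each library (points, RPM, linear axis from 0) for 16 genes, with chow in blue and HFD in red, in the order chow 1, chow 2, chow C7, chow 4 and HFD 1 to HFD 4, and the mean ± SD (n = 4) as the black bar beside each group. In all 16 panels the groups do not overlap; HFD 1 is the lowest HFD library for Osbpl3 (13 RPM) and Apoa4 (1145 RPM).

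Among called genes, those with the largest differences in RPM, as opposed to fold, include metabolic enzymes and secreted proteins. Fabp1, the liver fatty acid carrier, was at 412, 513, 653 and 567 RPM in the chow libraries and 1315, 1632, 1698 and 1384 RPM in the HFD libraries, with no overlap. Fabp1 had a log2 change of 1.5 with SE 0.18 (limma adjusted p = 2.21e-04). Mup20, a major urinary protein, averaged 727 ± 198 RPM in chow and 1767 ± 504 RPM in HFD. Mup20 had a log2 change of 1.27 with SE 0.28 (limma adjusted p = 0.0118). Acaa1b, a peroxisomal thiolase, averaged 532 ± 209 RPM in chow and 1103 ± 136 RPM in HFD (log2 change 1.11 with SE 0.22, limma adjusted p = 0.00619), and Inmt, an indole methyltransferase, averaged 140.2 ± 37.8 RPM in chow and 534 ± 72.2 RPM in HFD. Inmt had a log2 change of 1.95 with SE 0.30 (limma adjusted p = 0.00121). Car3, a carbonic anhydrase of liver, muscle and fat, averaged 440.0 ± 41.4 RPM in chow and 902 ± 292 RPM in HFD, with HFD 4 at 469.7 RPM inside the chow range. Car3 had a log2 change of 0.96 with SE 0.27 (limma adjusted p = 0.0356). Scp2, a peroxisomal sterol carrier, averaged 953 ± 94.1 RPM in chow and 1424 ± 99.3 RPM in HFD. Scp2 had a log2 change of 0.58 with SE 0.15 (limma adjusted p = 0.028). Among called genes that fell, Cyp3a11, Mat1a, Fga, Camk2b, Pck1, Serpina1e, Cyp4a14 and Mug1 lost most. Cyp4a14, a fatty acid hydroxylase, was at 642, 674, 2069 and 1489.5 RPM in the chow libraries and 175, 340.2, 206 and 256 RPM in the HFD libraries. Cyp4a14 had a log2 change of -2.18 with SE 0.49 (limma adjusted p = 0.0122). Chow C7 and chow 4 were high within chow, and all HFD libraries were below all chow libraries. Car3 lost its call without chow 1, 2, C7 or 4 or HFD 1, 2 or 3 (limma adjusted p 0.0556 to 0.109) and Scp2 without chow 1, 2 or 4 or HFD 2 or 3 (0.0613 to 0.0836). Car3 lost the call on the RPKM scale and with no minimum (limma adjusted p 0.0517 to 0.0676). Scp2 lost the call with no minimum (limma adjusted p 0.0975). Cyp4a14 lost the call with only HFD 2 and HFD 3 in HFD (limma adjusted p 0.0694).

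Genes were also read as 41 lists by pathway, cell type or complex. Of 1154 distinct list members tested, 167 rose and 108 fell. Each list is given by its counts and its median log2 change, to be set beside 7.11% called higher, 3.7% called lower and a median of 0.05 over all genes tested. The lists and their members were chosen with earlier results of these data known, so an excess over these shares is a description and not a test.

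**Figure D3:**
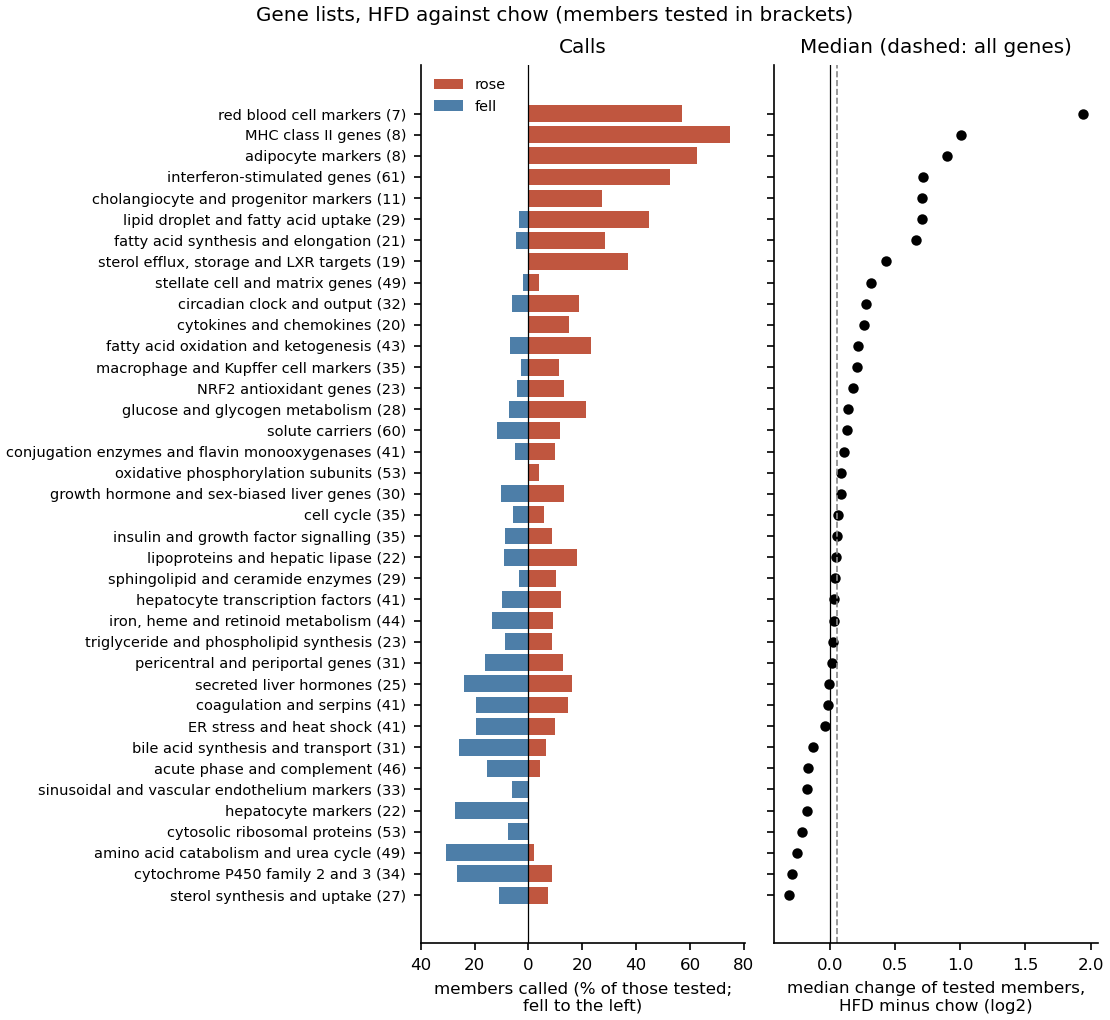
For each list with at least 7 members tested (number in brackets), the left panel gives the percentage of tested members called higher (red) or lower (blue) in HFD and the right panel the median change of tested members (log2, HFD minus chow), with the median of all genes tested, 0.05, as a dashed line. Of the lists with more than 20 members, the interferon-stimulated genes have the highest median (0.72) and the sterol synthesis list the lowest (-0.32).

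Of 21 genes of fatty acid synthesis and elongation tested, 6 rose and 1 fell (median log2 change 0.65), and 18 of the 21 had a change above 0. Srebf1 was at 34.1, 40.6, 33.6 and 31.3 RPM in the chow libraries and 222, 209.7, 209 and 211 RPM in the HFD libraries, a near-uniform level in each group. Srebf1 had a log2 change of 2.60 with SE 0.22 (limma adjusted p = 1.00e-05). The members that rose beside it are desaturases and elongases. Fads2 and Fads1 introduce the double bonds of polyunsaturated fatty acids, and Fads2 averaged 47.3 ± 5.48 RPM in chow and 197 ± 63.8 RPM in HFD. Fads2 had a log2 change of 2.0 with SE 0.27 (limma adjusted p = 4.60e-04). Fads1 was at 208, 171, 163 and 181 RPM in the chow libraries and 254, 274, 427 and 594 RPM in the HFD libraries. Fads1 had a log2 change of 1.02 with SE 0.25 (limma adjusted p = 0.0197). HFD 3 and HFD 4 held more of both than HFD 1 and HFD 2. The elongases Elovl2 (log2 change 0.90, limma adjusted p = 0.00821), Elovl5 (1.10, limma adjusted p = 0.032) and Elovl6 (1.36, limma adjusted p = 0.042) rose, and Elovl3, an elongase with male-biased and clock-linked expression in liver, fell (-1.74, limma adjusted p = 0.0472). Fasn, which makes palmitate, was at 141, 92.6, 47.0 and 107 RPM in the chow libraries and 159, 133, 233 and 223 RPM in the HFD libraries and was not called. Fasn had a log2 change of 1.01 with SE 0.45 (limma adjusted p = 0.172). Scd1, which makes oleate, was at 2553, 2561, 1241 and 2764 RPM in the chow libraries and 2027, 4657, 8238 and 7913 RPM in the HFD libraries and was not called either. Scd1 had a log2 change of 1.19 with SE 0.50 (limma adjusted p = 0.144). Chow C7 was the lowest library for both, and HFD 1 lay within the chow range for Scd1. Fads1 lost its call without chow 2 or HFD 3 (limma adjusted p 0.0568 to 0.0605) and Elovl5 without chow 1, 2, C7 or 4 or HFD 3 or 4 (0.0569 to 0.101). Elovl6 lost its call without chow 2, C7 or 4 or HFD 2, 3 or 4 (limma adjusted p 0.0743 to 0.117) and Elovl3 without chow 1, 2, C7 or 4 or HFD 1, 2, 3 or 4 (0.0628 to 0.117). Elovl5 lost the call on the RPKM scale and with no minimum (limma adjusted p 0.0545 to 0.0559). Elovl6 lost the call with only HFD 2 and HFD 3 in HFD and with no minimum (limma adjusted p 0.0696 to 0.0859). Elovl3 lost the call with only HFD 2 and HFD 3 in HFD, on the RPKM scale, with no minimum and under voom (limma adjusted p 0.0524 to 0.205). Fatty acid synthesis and elongation gave 7 calls in all, but 4 without chow 4 or HFD 4, on the RPKM scale (18 tested) or with no minimum and 3 without chow 2 or HFD 3.

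Lipid droplet and fatty acid uptake genes gave 13 rises and 1 fall among 29 tested (median 0.70). Carriers and uptake receptors were among them. Fabp2, the intestinal-type fatty acid carrier, was at 12, 15.1, 19.4 and 14.3 RPM in the chow libraries and 47.2, 80.4, 68.0 and 66.0 RPM in the HFD libraries, with no overlap. Fabp2 had a log2 change of 2.07 with SE 0.17 (limma adjusted p = 9.94e-06). The transcript 4933405D12Rik overlaps Fabp2 and holds reads equal to 91.4% of its reads. Cd36, which takes up long-chain fatty acids, averaged 14.9 ± 5.5 RPM in chow and 62.4 ± 14.2 RPM in HFD. Cd36 had a log2 change of 2.07 with SE 0.28 (limma adjusted p = 4.78e-04). Proteins of the droplet surface rose as well. Cidec averaged 5.07 ± 0.743 RPM in chow and 39.7 ± 22.1 RPM in HFD, with HFD 1 at 8.57 RPM well below the other HFD libraries (log2 change 2.56 with SE 0.47, limma adjusted p = 0.00386), and without HFD 1 its log2 change was 3.18. G0s2, which blocks triglyceride breakdown, averaged 31.0 ± 6.45 RPM in chow and 111 ± 42.2 RPM in HFD (log2 change 1.76 with SE 0.25, limma adjusted p = 5.98e-04), and Plin2, the main droplet coat of liver, was at 131, 152, 176 and 188 RPM in the chow libraries and 211, 333, 389 and 347 RPM in the HFD libraries. Plin2 had a log2 change of 0.96 with SE 0.26 (limma adjusted p = 0.0284). Pparg, a nuclear receptor that drives fat storage, averaged 4.52 ± 0.685 RPM in chow and 9.12 ± 2.02 RPM in HFD. Pparg had a log2 change of 0.92 with SE 0.19 (limma adjusted p = 0.00774). Lipe, the hormone-sensitive lipase, averaged 8.63 ± 1.89 RPM in chow and 15.6 ± 2.76 RPM in HFD (log2 change 0.83 with SE 0.16, limma adjusted p = 0.00621) and overlaps a transcript, 4732471J01Rik, with 73.8% as many reads. Plin5, which ties droplets to mitochondria, was the member that fell (log2 change -1.35 with SE 0.23, limma adjusted p = 0.00263). Plin2 lost its call without chow 1 or 2 or HFD 2, 3 or 4 (limma adjusted p 0.0592 to 0.088).

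Triglyceride and phospholipid synthesis gave 2 rises and 2 falls among 23 tested (median 0.02). Mogat1, a monoacylglycerol acyltransferase, went from 10 reads over chow to 87 over HFD, a ratio of 8.25 (exact 95% interval 4.28 to 17.8) (log2 change 1.68 with SE 0.38, limma adjusted p = 0.0125). Mogat1 held less than 1 RPM in every chow library, so it was tested only because of the libraries on the high-fat diet. Lpcat3, which loads polyunsaturated fatty acids into phospholipid and is an LXR target, averaged 44.1 ± 3.14 RPM in chow and 68.8 ± 9.62 RPM in HFD. Lpcat3 had a log2 change of 0.63 with SE 0.12 (limma adjusted p = 0.0042). Lpin1, a phosphatidate phosphatase, was at 333, 233, 139 and 196 RPM in the chow libraries and 28.1, 43.9, 65.7 and 77.2 RPM in the HFD libraries. Lpin1 had a log2 change of -2.09 with SE 0.55 (limma adjusted p = 0.0263). Cept1 fell slightly (log2 change -0.28 with SE 0.08, limma adjusted p = 0.0496). Lpin1 lost its call without chow 1, 2 or 4 or HFD 1 or 2 (limma adjusted p 0.0521 to 0.0779) and Cept1 without chow 2, C7 or 4 or HFD 1, 2, 3 or 4 (0.0608 to 0.136). Lpin1 lost the call with only HFD 2 and HFD 3 in HFD (limma adjusted p 0.0917). Cept1 lost the call with only HFD 2 and HFD 3 in HFD, on the RPKM scale, with only the 8 chow and HFD libraries, with no minimum and with a pseudocount of 2 RPM (limma adjusted p 0.0502 to 0.108). Triglyceride and phospholipid synthesis gave 4 calls in all, but 2 without chow 2 or HFD 2 or on the RPKM scale (18 tested).

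Fatty acid oxidation and ketogenesis gave 10 rises and 3 falls among 43 tested (median 0.21). Among those that rose was Ppara, the nuclear receptor for fatty acids, which averaged 169 ± 10.7 RPM in chow and 278 ± 49.5 RPM in HFD. Ppara had a log2 change of 0.70 with SE 0.13 (limma adjusted p = 0.00474). Abcd2, a peroxisomal importer of very-long-chain fatty acids, was at 5.24, 3.28, 6.78 and 7.03 RPM in the chow libraries and 12.3, 12.6, 15.6 and 24.6 RPM in the HFD libraries. Abcd2 had a log2 change of 1.46 with SE 0.30 (limma adjusted p = 0.00748). Aldh3a2, the fatty aldehyde dehydrogenase, averaged 171 ± 32.5 RPM in chow and 434 ± 109 RPM in HFD. Aldh3a2 had a log2 change of 1.33 with SE 0.19 (limma adjusted p = 7.64e-04). Nudt7, a peroxisomal CoA hydrolase held in another list, was at 109, 86.3, 119 and 135 RPM in the chow libraries and 400.2, 308, 375 and 263 RPM in the HFD libraries. Nudt7 had a log2 change of 1.58 with SE 0.22 (limma adjusted p = 6.55e-04). Mitochondrial oxidation was represented by Hadh (0.50, limma adjusted p = 0.0145) and Decr1 (0.48, limma adjusted p = 0.0297). Bdh1, which interconverts ketone bodies, averaged 96.9 ± 8.41 RPM in chow and 166 ± 18.4 RPM in HFD. Bdh1 had a log2 change of 0.77 with SE 0.15 (limma adjusted p = 0.00541). The fallers were Cyp4a14, Cyp4a10 (-1.31, limma adjusted p = 0.0447) and Angptl4, a lipoprotein lipase inhibitor (-0.68, limma adjusted p = 0.00981). Hadh lost its call without chow 2 (limma adjusted p 0.0517) and Decr1 without chow 1 or 2 or HFD 2 or 3 (0.0766 to 0.0995). Cyp4a10 lost its call without chow C7 or 4 or HFD 1 or 3 (limma adjusted p 0.102 to 0.121). Cyp4a10 lost the call with only HFD 2 and HFD 3 in HFD, on the RPKM scale and with no minimum (limma adjusted p 0.0678 to 0.165). Angptl4 lost the call with only HFD 2 and HFD 3 in HFD (limma adjusted p 0.0684).

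Of 27 genes of sterol synthesis and uptake tested, 2 rose and 3 fell, with 8 above 0 (median -0.32). Srebf2, which encodes SREBP2, was at 36.9, 26.5, 28.9 and 38.5 RPM in the chow libraries and 14.7, 20.6, 24.9 and 23 RPM in the HFD libraries. Srebf2 had a log2 change of -0.65 with SE 0.16 (limma adjusted p = 0.0215). Tm7sf2, a sterol reductase, averaged 37.3 ± 6.90 RPM in chow and 15.1 ± 3.67 RPM in HFD (log2 change -1.29 with SE 0.21, limma adjusted p = 0.0018), and Cyp51, the lanosterol demethylase, fell (-1.15, limma adjusted p = 0.0316). Sc5d, a sterol desaturase late in the pathway, went the other way, at 109, 92.8, 89.6 and 125 RPM in the chow libraries and 181, 142, 252 and 245 RPM in the HFD libraries. Sc5d had a log2 change of 0.95 with SE 0.21 (limma adjusted p = 0.0126). Srebf2 lost its call without chow 1 or 4 or HFD 2 (limma adjusted p 0.0515 to 0.0668) and Cyp51 without chow 1 or 4 or HFD 1 or 2 (0.0678 to 0.0986). Srebf2 and Sc5d lost the call with only HFD 2 and HFD 3 in HFD (limma adjusted p 0.064 to 0.0857). Cyp51 lost the call with only HFD 2 and HFD 3 in HFD, on the RPKM scale and with no minimum (limma adjusted p 0.0531 to 0.121). Sterol synthesis and uptake gave 5 calls in all, but 2 with only HFD 2 and HFD 3 in HFD, 9 without HFD 3 or with only the 8 chow and HFD libraries and 3 without chow 1 or 4 or HFD 2.

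Sterol efflux, storage and LXR targets gave 7 rises and no fall among 19 tested by limma, with 10 higher and 1 lower at an unadjusted p under 0.05 and 7 higher and 0 lower by voom (median 0.43). Their summed level was 1042, 1005, 985 and 1156 RPM in the chow libraries and 1425, 1521, 1467 and 1452 RPM in the HFD libraries, so every HFD library exceeded every chow library. Abcg5 and Abcg8 form the pump that exports sterols into bile. Abcg5 was at 52.1, 49.3, 54.0 and 76.3 RPM in the chow libraries and 108, 125, 95.5 and 118 RPM in the HFD libraries (log2 change 0.95 with SE 0.17, limma adjusted p = 0.00365), and the adjacent Abcg8 overlaps it and rose as well (0.85, limma adjusted p = 0.00473). Lipa, the lysosomal lipase that frees cholesterol from esters, averaged 87.9 ± 9.83 RPM in chow and 137 ± 16.9 RPM in HFD. Lipa had a log2 change of 0.63 with SE 0.12 (limma adjusted p = 0.00452). Abca1, which loads cholesterol on to apolipoprotein A-I, rose (0.57, limma adjusted p = 0.0111), and so did Nceh1, a cholesteryl ester hydrolase (0.43, limma adjusted p = 0.0446). Nceh1 lost its call without chow 1, 2 or 4 or HFD 2, 3 or 4 (limma adjusted p 0.0532 to 0.135). Nceh1 lost the call on the RPKM scale, with only the 8 chow and HFD libraries and with no minimum (limma adjusted p 0.0557 to 0.0815).

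Bile acid synthesis and transport gave 2 rises and 8 falls among 31 tested (median -0.13). Acnat2 and Acnat1 encode acyltransferases that join fatty acids to amino acids. Acnat2 was at 46.1, 46.2, 42.2 and 34.2 RPM in the chow libraries and 8.09, 12.2, 7.30 and 6.95 RPM in the HFD libraries (log2 change -2.25 with SE 0.19, limma adjusted p = 1.00e-05), and Acnat1 averaged 95.7 ± 12.5 RPM in chow and 53.3 ± 10.9 RPM in HFD. Acnat1 had a log2 change of -0.85 with SE 0.16 (limma adjusted p = 0.00464). Fgfr4, the hepatocyte receptor through which intestinal FGF15 holds back bile acid synthesis, averaged 18 ± 1.72 RPM in chow and 11.7 ± 1.40 RPM in HFD. Fgfr4 had a log2 change of -0.60 with SE 0.11 (limma adjusted p = 0.00315). Cyp8b1, which directs synthesis to cholic acid, fell (-0.93, limma adjusted p = 0.0309), as did Cyp27a1 (-0.49, limma adjusted p = 0.0353) and Cyp39a1 (-1.02, limma adjusted p = 0.0165), which start or continue the alternative pathways. Slco1a4, a basolateral uptake carrier, fell (-1.82, limma adjusted p = 0.0185). Cyp7a1, the rate-limiting enzyme of the classical pathway, was at 104, 107, 49.8 and 62.1 RPM in the chow libraries and 56.1, 48.5, 72.7 and 67.2 RPM in the HFD libraries and was not called. Cyp7a1 had a log2 change of -0.34 with SE 0.27 (limma adjusted p = 0.461). The rises were those of the peroxisomal genes Amacr (0.41, limma adjusted p = 0.0142) and Scp2. Cyp8b1 lost its call without chow 1, 2 or C7 or HFD 1, 2 or 4 (limma adjusted p 0.0546 to 0.0917) and Cyp27a1 without chow 1, 2 or 4 or HFD 2 or 4 (0.0602 to 0.102). Cyp39a1 lost its call without chow 1 or 2 or HFD 2 (limma adjusted p 0.0508 to 0.0544) and Slco1a4 without chow 4 (0.0525). Cyp8b1 and Cyp27a1 lost the call with only HFD 2 and HFD 3 in HFD and with no minimum (limma adjusted p 0.0543 to 0.132). Cyp39a1 and Slco1a4 lost the call with only HFD 2 and HFD 3 in HFD (limma adjusted p 0.0554 to 0.0702). Bile acid synthesis and transport gave 10 calls in all, but 6 without chow 1 or HFD 2 and 5 without chow 2.

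Among lipoproteins and hepatic lipase, 4 of 22 rose and 2 fell (median 0.04). Apoc2, the activator of lipoprotein lipase, was at 67.1, 69.6, 63.5 and 69.7 RPM in the chow libraries and 123, 141, 171 and 247 RPM in the HFD libraries. Apoc2 had a log2 change of 1.28 with SE 0.19 (limma adjusted p = 9.27e-04). Apom, a carrier of sphingosine 1-phosphate on HDL, averaged 40.3 ± 6.24 RPM in chow and 24.4 ± 5.49 RPM in HFD (log2 change -0.72 with SE 0.16, limma adjusted p = 0.00998), and Tm6sf2, which loads lipid on to VLDL, fell (-0.72, limma adjusted p = 0.0371). Apoe was at 10602, 10578, 10127 and 10821 RPM in the chow libraries and 12218, 12795, 13371 and 14457 RPM in the HFD libraries, each HFD library above each chow library, and was not called. Apoe had a log2 change of 0.32 with SE 0.31 (limma adjusted p = 0.548). Angptl8, an inhibitor of lipoprotein lipase listed in the files as Gm6484, rose (1.10, limma adjusted p = 0.0133), and Dock6, which overlaps it, holds more reads and was called higher too. Tm6sf2 lost its call without chow 1, 2 or C7 or HFD 2 or 3 (limma adjusted p 0.0528 to 0.117). Tm6sf2 lost the call with no minimum (limma adjusted p 0.0625).

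Cytochrome P450 families 2 and 3 gave 3 rises and 9 falls among 34 tested (median -0.29). Their summed level was 12766, 12674, 11948 and 13206 RPM in the chow libraries and 9769, 9533, 9378 and 6975 RPM in the HFD libraries, with every HFD library below every chow library and HFD 4 the lowest. Cyp2c29 was at 842, 625, 549 and 669 RPM in the chow libraries and 335, 248, 181 and 97.3 RPM in the HFD libraries, with HFD 4 the lowest. Cyp2c29 had a log2 change of -1.76 with SE 0.32 (limma adjusted p = 0.00378). Cyp2c55 (-1.64, limma adjusted p = 0.00333), Cyp3a25 (-1.39, limma adjusted p = 0.00412), Cyp2c37 (-1.40, limma adjusted p = 0.0103) and Cyp2c54 (-1.15, limma adjusted p = 0.0107) fell too. Cyp2e1, an ethanol-oxidizing enzyme of pericentral hepatocytes, was at 3470.2, 3596, 4382 and 4280.5 RPM in the chow libraries and 4329.6, 4509, 4529 and 2721 RPM in the HFD libraries, with the groups overlapping. Cyp2e1 had a log2 change of 0.01 with SE 0.24 (limma adjusted p = 0.986). The receptors themselves were not called, with Nr1i2 (PXR) at a log2 change of -0.08, limma adjusted p = 0.776 and Nr1i3 (CAR) at 0.16, limma adjusted p = 0.771. Nr1i3 was at 171, 184, 155 and 195 RPM in the chow libraries and 284, 288, 200.3 and 90.3 RPM in the HFD libraries, higher than chow in HFD 1 and HFD 2 and lower in HFD 4.

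Conjugation enzymes gave 4 rises and 2 falls among 41 tested (median 0.11). Gstp1, a glutathione transferase, was at 164, 208, 207 and 141 RPM in the chow libraries and 113, 66.2, 61.0 and 52.9 RPM in the HFD libraries. Gstp1 had a log2 change of -1.33 with SE 0.22 (limma adjusted p = 0.00197). Sult5a1, a sulfotransferase, averaged 28.8 ± 10.3 RPM in chow and 9.58 ± 5.36 RPM in HFD. Sult5a1 had a log2 change of -1.65 with SE 0.36 (limma adjusted p = 0.00981). In the NRF2 antioxidant list 3 of 23 rose and 1 fell. Nfe2l2, which encodes NRF2, averaged 35.8 ± 6.10 RPM in chow and 62.1 ± 6.58 RPM in HFD (log2 change 0.80 with SE 0.14, limma adjusted p = 0.00323), while its targets on the list were mostly without a call, and Cbr1, a carbonyl reductase, fell (-0.84, limma adjusted p = 0.00899). Conjugation enzymes and flavin monooxygenases gave 6 calls in all, but 3 without chow 2 or 4 or HFD 2 or 3 or with no minimum. NRF2 antioxidant genes gave 4 calls in all, but 2 without chow 2 or HFD 3.

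Amino acid catabolism and the urea cycle held more fallers than any other of the 41 lists. Of 49 tested, 15 fell and 1 rose (median -0.26), and the summed level was 19306, 16509, 14459.8 and 15247 RPM in the chow libraries and 10204, 10423, 11845 and 13304 RPM in the HFD libraries, without overlap. Methionine metabolism was well represented. Mat1a, which makes S-adenosylmethionine, was at 3390.1, 3188, 3549 and 3035 RPM in the chow libraries and 1313, 1664, 1818 and 2149 RPM in the HFD libraries. Mat1a had a log2 change of -0.94 with SE 0.19 (limma adjusted p = 0.00618). Gnmt, which consumes it, was at 1018, 815, 515 and 639 RPM in the chow libraries and 312, 259.6, 341 and 394 RPM in the HFD libraries (log2 change -1.16 with SE 0.22, limma adjusted p = 0.00456), and Cth, the last step to cysteine, averaged 163 ± 38.4 RPM in chow and 83.2 ± 12.5 RPM in HFD. Cth had a log2 change of -0.95 with SE 0.17 (limma adjusted p = 0.00405). Cbs (-0.59, limma adjusted p = 0.0126) and Ahcy (-0.57, limma adjusted p = 0.0426), the remaining steps between them, fell too. Tdo2, the first enzyme of tryptophan breakdown, was at 639.9, 644, 585 and 609 RPM in the chow libraries and 407, 312, 348 and 322 RPM in the HFD libraries. Tdo2 had a log2 change of -0.84 with SE 0.13 (limma adjusted p = 9.85e-04). In the urea cycle Cps1 averaged 1201 ± 153 RPM in chow and 643 ± 181 RPM in HFD (log2 change -0.93 with SE 0.25, limma adjusted p = 0.0317), and Ass1 (-1.15, limma adjusted p = 0.04), Asl (-1.22, limma adjusted p = 0.00684) and Arg1 (-0.68, limma adjusted p = 0.0185) fell, while Otc, the remaining step, rose (0.33, limma adjusted p = 0.0362). Ahcy lost its call without chow 1, 2, C7 or 4 or HFD 1, 2 or 3 (limma adjusted p 0.0511 to 0.12) and Cps1 without chow 1, 2 or 4 or HFD 2 or 3 (0.0642 to 0.099). Ass1 lost its call without chow 1, 2 or 4 or HFD 1, 2 or 3 (limma adjusted p 0.0654 to 0.121) and Arg1 without chow 1 or 2 or HFD 2 (0.0579 to 0.0642). Otc lost its call without chow 1, 2, C7 or 4 or HFD 1, 3 or 4 (limma adjusted p 0.057 to 0.0995). Mat1a and Cps1 lost the call with no minimum (limma adjusted p 0.0504 to 0.063). Ahcy lost the call with only HFD 2 and HFD 3 in HFD and with no minimum (limma adjusted p 0.0657 to 0.0861). Ass1 lost the call on the RPKM scale and with no minimum (limma adjusted p 0.0591 to 0.0675). Otc lost the call with only HFD 2 and HFD 3 in HFD and with equal library medians (limma adjusted p 0.077 to 0.198). Amino acid catabolism and urea cycle gave 16 calls in all, but 10 without HFD 2 or 3 and 8 without chow 1 or 2.

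Asns is the gene of this list with the largest change and is known to be induced through a C/EBP-ATF response element when amino acids are scarce or the endoplasmic reticulum is stressed. Its promoter is shown because that element can be read in it. The sequence runs from 250 bases before to 50 bases after the start in RefSeq (GRCm38.p6, chr6:7693160-7693459, minus strand), with a match to the letters TGATGNAA in capitals, about 19 bases before the start. The same letters, on either strand, stand in 2.7% of the 9607 tested genes with a promoter in that table and in 3.97% of all 32851 promoters of this length in it.
Asns: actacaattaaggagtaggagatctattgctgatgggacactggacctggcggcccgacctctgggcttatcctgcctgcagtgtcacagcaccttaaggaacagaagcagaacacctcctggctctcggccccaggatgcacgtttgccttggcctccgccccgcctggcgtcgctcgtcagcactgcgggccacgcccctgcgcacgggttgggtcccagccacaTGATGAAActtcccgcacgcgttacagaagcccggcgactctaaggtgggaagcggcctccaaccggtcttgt
Atf4, which binds such elements, was at 71.9, 58.1, 60.8 and 57.7 RPM in the chow libraries and 52.5, 50.9, 53.4 and 69.2 RPM in the HFD libraries (log2 change -0.14 with SE 0.14, limma adjusted p = 0.564), and Ddit3, a further target, at 9.29, 10.7, 9.86 and 8.14 RPM in the chow libraries and 9.33, 9.99, 9.63 and 12.2 RPM in the HFD libraries. Ddit3 had a log2 change of 0.11 with SE 0.11 (limma adjusted p = 0.59). Slc38a2, an amino acid transporter with such an element, fell (-1.08, limma adjusted p = 0.0139), and Fgf21, an induced hormone, rose from 1.94 ± 0.997 to 6.36 ± 3.83 RPM (log2 change 1.43 with SE 0.39, limma adjusted p = 0.0307). Fgf21 lost its call without chow 2 or 4 or HFD 2, 3 or 4 (limma adjusted p 0.0692 to 0.0905). Slc38a2 lost the call with only HFD 2 and HFD 3 in HFD (limma adjusted p 0.0571). Fgf21 lost the call with no minimum and under voom (limma adjusted p 0.0547 to 0.0552).

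Glucose and glycogen genes gave 6 rises and 2 falls among 28 tested (median 0.14). The fallers, G6pc and Pck1, act in glucose release and glucose synthesis. G6pc was at 659.8, 519, 391 and 456 RPM in the chow libraries and 43.6, 276, 171 and 136 RPM in the HFD libraries (log2 change -1.93 with SE 0.45, limma adjusted p = 0.015), and Pck1 averaged 2168 ± 219 RPM in chow and 1116 ± 357 RPM in HFD. Pck1 had a log2 change of -1.0 with SE 0.24 (limma adjusted p = 0.0153). Ugp2 and Gys2, which make glycogen, rose. Ugp2 was at 124, 121, 82.6 and 88.1 RPM in the chow libraries and 191, 223, 237 and 164 RPM in the HFD libraries (log2 change 0.97 with SE 0.19, limma adjusted p = 0.0053), and Gys2 averaged 60.3 ± 9.20 RPM in chow and 116 ± 25.2 RPM in HFD. Gys2 had a log2 change of 0.93 with SE 0.18 (limma adjusted p = 0.00618). Pck2 (0.96, limma adjusted p = 0.0281), Pcx (0.42, limma adjusted p = 0.0166), the glucose transporter Slc2a2 (0.58, limma adjusted p = 0.0266) and Gbe1 (0.60, limma adjusted p = 0.0363) rose too. Igfbp1, an insulin-repressed binding protein, was at 124, 93.5, 304 and 62.8 RPM in the chow libraries and 11, 32.6, 23.5 and 76.4 RPM in the HFD libraries, so that HFD 4 fell within the chow range (log2 change -2.08 with SE 0.53, limma adjusted p = 0.022). Pck2 lost its call without chow 1, 2 or 4 or HFD 2, 3 or 4 (limma adjusted p 0.0533 to 0.0808) and Pcx without chow 2 or HFD 2 (0.0568 to 0.058). Slc2a2 lost its call without chow 2 or HFD 2 or 3 (limma adjusted p 0.0529 to 0.0872) and Gbe1 without chow 2, C7 or 4 or HFD 2 or 3 (0.0664 to 0.109). Igfbp1 lost its call without chow 1 or C7 or HFD 1 or 3 (limma adjusted p 0.0501 to 0.0624). G6pc lost the call with only HFD 2 and HFD 3 in HFD (limma adjusted p 0.0667). Pck2 lost the call with only HFD 2 and HFD 3 in HFD and with no minimum (limma adjusted p 0.0532 to 0.0545). Gbe1 lost the call with no minimum (limma adjusted p 0.0565). Glucose and glycogen metabolism gave 8 calls in all, but 4 without chow 2 or HFD 2 and 5 without HFD 3.

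By count, interferon-stimulated genes held more risers than any other of the 41 lists, and also more members tested. Some lists with fewer members tested had a larger share called, such as 75% of MHC class II genes against 52.5% here. Of 61 tested, 32 rose and none fell (limma; 47 were higher and 0 lower at an unadjusted p under 0.05, and voom called 24 higher and 0 lower), 60 had a change above 0, and the median log2 change was 0.72. The summed level was 2202, 2211, 2219 and 2154 RPM in the chow libraries and 3251, 2719, 2737 and 3179 RPM in the HFD libraries, a narrow range in chow that lay below every HFD library. Without HFD 1 and HFD 4, 8 of the 61 were called. Sensors and effectors of antiviral defence were among the members. Samd9l, an antiviral factor, was at 2.94, 3.75, 3.52 and 3.24 RPM in the chow libraries and 10.5, 12, 13.2 and 12.4 RPM in the HFD libraries. Samd9l had a log2 change of 1.70 with SE 0.20 (limma adjusted p = 2.21e-04). Ifih1, the RNA sensor MDA5, was at 7.73, 8.53, 8.72 and 8.32 RPM in the chow libraries and 17.2, 16.3, 15.4 and 14.9 RPM in the HFD libraries (log2 change 0.90 with SE 0.11, limma adjusted p = 3.18e-04), and Gbp7, a guanylate-binding protein, at 4.60, 4.50, 4.14 and 4.44 RPM in the chow libraries and 17.3, 9.79, 10.4 and 8.99 RPM in the HFD libraries. Gbp7 had a log2 change of 1.25 with SE 0.18 (limma adjusted p = 7.47e-04). All 3 had tight chow values with every HFD library higher, and HFD 1 held the most Gbp7. Ifit3 was at 2.94, 2.81, 5.11 and 4.53 RPM in the chow libraries and 15.6, 12.3, 9.87 and 14.4 RPM in the HFD libraries. Ifit3 had a log2 change of 1.66 with SE 0.34 (limma adjusted p = 0.00713). Ifit1 was at 1.75, 1.78, 2.99 and 1.76 RPM in the chow libraries and 8.57, 6.59, 5.23 and 7.70 RPM in the HFD libraries. Ifit1 had a log2 change of 1.56 with SE 0.37 (limma adjusted p = 0.0174). The transcription factors Irf9 (0.56, limma adjusted p = 0.0219) and Irf1 (0.64, limma adjusted p = 0.0226) rose, and of the genes that process antigen for MHC class I, Tap1 averaged 7.95 ± 1.90 RPM in chow and 23.1 ± 5.81 RPM in HFD (log2 change 1.49 with SE 0.24, limma adjusted p = 0.00165), with Psmb9 (1.29, limma adjusted p = 0.00452), Psmb8 (0.70, limma adjusted p = 0.00383) and Tap2 (0.73, limma adjusted p = 0.0122) higher as well. H2-K1, a class I heavy chain, was at 631, 629, 599 and 625 RPM in the chow libraries and 714, 670.3, 738 and 813 RPM in the HFD libraries, above chow in every HFD library and not called. H2-K1 had a log2 change of 0.24 with SE 0.12 (limma adjusted p = 0.23). Psme1, a proteasome activator subunit, was the exception to the changes above 0 (log2 change -0.00 with SE 0.11, limma adjusted p = 0.997). Ifit1 lost its call without chow 2 (limma adjusted p 0.0509) and Irf9 without chow 1 or 4 or HFD 1 (0.053 to 0.0611). Irf1 lost its call without chow 1 or 4 or HFD 1 (limma adjusted p 0.054 to 0.0579). Ifit3, Irf9, Irf1 and Tap2 lost the call with only HFD 2 and HFD 3 in HFD (limma adjusted p 0.0588 to 0.154). Ifit1 lost the call with only HFD 2 and HFD 3 in HFD, on the RPKM scale and under voom (limma adjusted p 0.0528 to 0.108). Interferon-stimulated genes gave 32 calls in all, but 8 with only HFD 2 and HFD 3 in HFD, 16 on the RPKM scale (39 tested), 15 without chow 1 and 19 without chow 2.

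**Figure D4:**
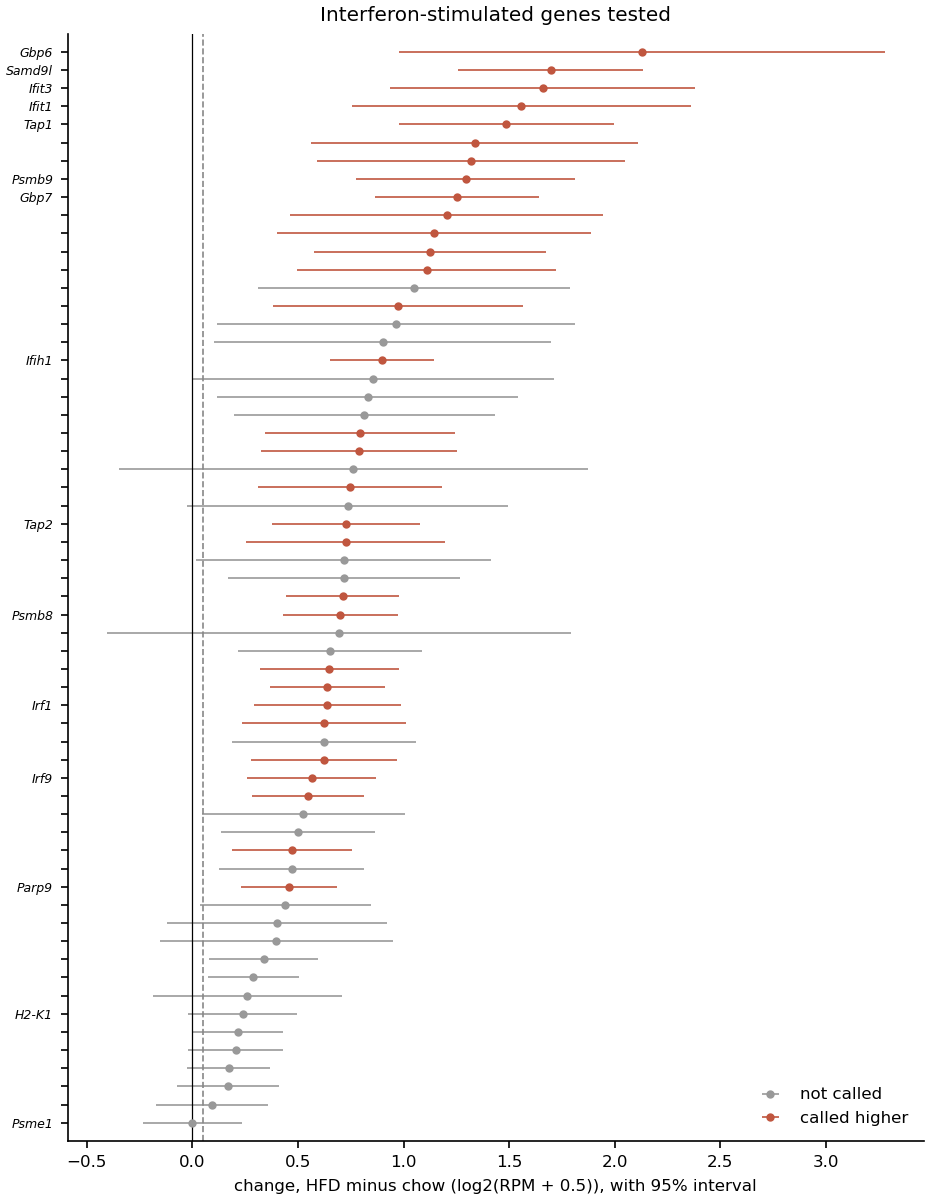
Change of the interferon-stimulated genes tested, other than 1 that is not shown (HFD minus chow, log2(RPM + 0.5)) with its 95% interval from the limma fit, red where called and grey where not, and the median of all genes tested as a dashed line. Genes named in the text are labelled, called genes run from 0.46 (Parp9) to 2.13 (Gbp6), and all points but that of Psme1 lie to the right of 0.

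Interferon acts through a complex that holds IRF9 and binds a pair of GAAA cores with a spacer of 2 bases. Promoters of 4 of the genes that rose are shown because that pair, GAAA with any 2 bases before the next GAAA, can be read in them. Each runs from 250 bases before to 50 after the start in RefSeq (GRCm38.p6) in the direction of the gene, with matches on either strand in capitals. They are Ifit3 at chr19:34583279-34583578 and Ifit1 at chr19:34640639-34640938 (both plus strand, 2 matches each), Gbp7 at chr3:142530086-142530385 (plus strand, 1 match) and Ifih1 at chr2:62646206-62646505 (minus strand, 1 match, after the start).
Ifit3: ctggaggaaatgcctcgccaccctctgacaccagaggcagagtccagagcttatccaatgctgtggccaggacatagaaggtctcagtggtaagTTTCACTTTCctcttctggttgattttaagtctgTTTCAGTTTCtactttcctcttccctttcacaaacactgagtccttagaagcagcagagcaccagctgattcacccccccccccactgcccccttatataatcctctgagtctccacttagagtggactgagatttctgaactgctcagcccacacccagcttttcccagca
Ifit1: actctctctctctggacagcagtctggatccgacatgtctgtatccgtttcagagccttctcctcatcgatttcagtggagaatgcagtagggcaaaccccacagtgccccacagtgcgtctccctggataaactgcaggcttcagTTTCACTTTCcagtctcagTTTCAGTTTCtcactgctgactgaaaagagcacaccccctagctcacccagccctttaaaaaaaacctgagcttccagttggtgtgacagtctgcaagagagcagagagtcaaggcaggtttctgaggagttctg
Gbp7: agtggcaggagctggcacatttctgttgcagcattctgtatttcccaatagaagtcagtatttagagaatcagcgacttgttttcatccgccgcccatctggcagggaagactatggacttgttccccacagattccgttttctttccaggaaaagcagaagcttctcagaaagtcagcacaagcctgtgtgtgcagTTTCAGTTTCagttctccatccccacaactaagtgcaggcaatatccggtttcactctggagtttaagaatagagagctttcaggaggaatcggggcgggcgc
Ifih1: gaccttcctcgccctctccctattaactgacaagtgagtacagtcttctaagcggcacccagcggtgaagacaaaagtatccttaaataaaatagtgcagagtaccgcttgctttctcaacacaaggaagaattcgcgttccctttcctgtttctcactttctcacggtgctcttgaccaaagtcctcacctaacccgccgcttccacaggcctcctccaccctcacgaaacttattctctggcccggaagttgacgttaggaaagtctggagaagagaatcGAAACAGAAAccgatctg
The pair stood in 36.8% of the 19 called members with a promoter in the table and in 48.0% of the 25 members that were not called, against 3.8% of the tested genes and 3.44% of all promoters there. A match says only that these letters stand in the window.

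MHC class II genes, which present peptides on macrophages, dendritic cells and B cells, rose in 6 of 8 tested by limma, with none lower, 7 higher and 0 lower at an unadjusted p under 0.05, and 6 higher and 0 lower by voom (median 1.0). Their summed level was 36.3, 38.1, 70.6 and 40.6 RPM in the chow libraries and 86.0, 82.8, 82.6 and 137 RPM in the HFD libraries, so chow C7 and HFD 4 were each the highest of their group. H2-Ab1 was at 5.06, 6.47, 10.2 and 6.01 RPM in the chow libraries and 13.3, 13.2, 13.4 and 20.9 RPM in the HFD libraries. H2-Ab1 had a log2 change of 1.09 with SE 0.24 (limma adjusted p = 0.00998). H2-Eb1 (1.28, limma adjusted p = 0.0126), H2-Aa (1.23, limma adjusted p = 0.0151), Cd74 (0.94, limma adjusted p = 0.0264) and the class II activator Ciita (1.06, limma adjusted p = 0.0226) rose, though Ciita had 18 reads in chow and 62 in HFD and lies beside Dexi, which holds many more. H2-Aa lost its call without chow 2 (limma adjusted p 0.0528) and Cd74 without chow 1, 2 or 4 or HFD 2 or 4 (0.0563 to 0.0817). Ciita lost its call without chow 1 or 2 or HFD 2 or 3 (limma adjusted p 0.065 to 0.0696). H2-Ab1, H2-Eb1 and H2-Aa lost the call with only HFD 2 and HFD 3 in HFD (limma adjusted p 0.0559 to 0.0696). Cd74 lost the call with only HFD 2 and HFD 3 in HFD and on the RPKM scale (limma adjusted p 0.0501 to 0.159). MHC class II genes gave 6 calls in all, but 1 with only HFD 2 and HFD 3 in HFD, 3 without chow 1 or on the RPKM scale (4 tested) and 2 without chow 2.

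Markers of macrophages and Kupffer cells, the resident macrophages of the liver, gave 4 rises and 1 fall among 35 tested (median 0.20), and their summed level overlapped between groups, with 741 to 1031 RPM in chow and 866 to 1161 RPM in HFD. Mpeg1, a pore-forming protein of macrophages, was at 22.5, 21.9, 37.3 and 30.7 RPM in the chow libraries and 62.0, 49.8, 46.8 and 73.8 RPM in the HFD libraries. Mpeg1 had a log2 change of 1.04 with SE 0.23 (limma adjusted p = 0.0108). Cd163, the scavenger receptor for haemoglobin, was at 6.62, 10.2, 16.5 and 12.8 RPM in the chow libraries and 3.71, 3.98, 3.82 and 0.680 RPM in the HFD libraries, lower in every HFD library. Cd163 had a log2 change of -1.87 with SE 0.38 (limma adjusted p = 0.00741). Clec4f, which defines Kupffer cells in mice, was at 30.8, 40.7, 72.3 and 46.5 RPM in the chow libraries and 46.4, 37.2, 36.4 and 26.8 RPM in the HFD libraries and was not called. Clec4f had a log2 change of -0.33 with SE 0.23 (limma adjusted p = 0.406). Trem2 and Gpnmb, known from lipid-laden macrophages, did not reach the minimum for a test. Trem2 was at 0.276, 0.187, 0.617 and 0.0925 RPM in the chow libraries and 0.190, 0.776, 1.99 and 2.49 RPM in the HFD libraries, and Gpnmb at 0, 0.281, 0.264 and 0 RPM in the chow libraries and 0.0952, 0, 2.82 and 4.08 RPM in the HFD libraries, so HFD 3 and HFD 4 were the highest for both. Mpeg1 lost the call with only HFD 2 and HFD 3 in HFD (limma adjusted p 0.0909). Macrophage and Kupffer cell markers gave 5 calls in all, but 1 with only HFD 2 and HFD 3 in HFD, 2 without chow 2 or 4 or on the RPKM scale (17 tested) and 3 without chow 1 or HFD 3 or 4 or with a minimum of 5 RPM (22 tested).

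Of the T, B and NK cell markers 3 could be tested by limma, and 0 were called, 0 had an unadjusted p under 0.05 and voom called 0, while the summed level was 7.27 to 13.5 RPM in chow and 9.81 to 18.3 RPM in HFD. Of 2 neutrophil markers tested 0 were called (1 higher at an unadjusted p under 0.05, 0 by voom), and the list summed to 2.58 to 6.25 RPM in chow and 5.71 to 7.10 RPM in HFD. Of 20 cytokines and chemokines tested by limma, 3 rose and 0 fell, with 5 and 0 at an unadjusted p under 0.05 and 1 and 0 by voom (median 0.26). Cxcl9, an interferon-gamma-induced chemokine, was at 1.66, 1.87, 2.20 and 1.11 RPM in the chow libraries and 9.81, 3.01, 3.07 and 6.72 RPM in the HFD libraries (log2 change 1.35 with SE 0.38, limma adjusted p = 0.0349), and Cxcl10 rose from 25 reads over chow to 96 over HFD. Cxcl10 had a log2 change of 1.21 with SE 0.35 (limma adjusted p = 0.0374). Cxcl10 overlaps Art3. Tnf, Il6 and Ccl2 were below the minimum for a test, and Ccl2 was at 0.0920, 0, 0.0881 and 0 RPM in the chow libraries and 0.0952, 0.291, 0.581 and 1.59 RPM in the HFD libraries. Cxcl9 lost its call without chow 1, 2 or 4 or HFD 1 or 4 (limma adjusted p 0.0704 to 0.0978) and Cxcl10 without chow 1, 2, C7 or 4 or HFD 1 or 4 (0.0549 to 0.104). Cxcl9 and Cxcl10 lost the call with only HFD 2 and HFD 3 in HFD, on the RPKM scale, with no minimum and under voom (limma adjusted p 0.0524 to 0.264). Cytokines and chemokines gave 3 calls in all, but 0 without chow 1, 2 or 4, with only HFD 2 and HFD 3 in HFD or on the RPKM scale (12 tested) and 1 without chow C7 or HFD 1 or 4, with no minimum or under voom.

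Of 49 stellate cell and matrix genes tested, 2 rose and 1 fell, although 37 had a change above 0 (median 0.31). Loxl2, which crosslinks collagen, was at 1.20, 0.656, 1.67 and 0.925 RPM in the chow libraries and 4.28, 7.85, 8.71 and 8.23 RPM in the HFD libraries, with no overlap. Loxl2 had a log2 change of 2.26 with SE 0.23 (limma adjusted p = 5.18e-05). Tgfbr2, the TGF-beta receptor, averaged 14.3 ± 1.09 RPM in chow and 24.8 ± 5.11 RPM in HFD. Tgfbr2 had a log2 change of 0.75 with SE 0.14 (limma adjusted p = 0.00388). Col1a1 was at 0.828, 1.03, 1.06 and 0.0925 RPM in the chow libraries and 0.571, 1.65, 2.74 and 4.30 RPM in the HFD libraries (log2 change 1.06 with SE 0.46, limma adjusted p = 0.156) and Col3a1 at 4.05, 3.19, 6.34 and 3.51 RPM in the chow libraries and 2.38, 10.5, 14.3 and 17.2 RPM in the HFD libraries. Col3a1 had a log2 change of 1.04 with SE 0.47 (limma adjusted p = 0.177). Neither fibrillar collagen was called, HFD 1 was low for both, and HFD 2 to HFD 4 were above all chow libraries. Mmp14, a collagen-degrading protease, fell (-0.60, limma adjusted p = 0.0366). Endothelial markers gave no rise and 2 falls among 33 tested by limma (3 higher and 10 lower at an unadjusted p under 0.05, 0 and 2 by voom), those of Wnt2 (-1.09, limma adjusted p = 0.02), which central-vein endothelium secretes, and Dnase1l3 (-0.87, limma adjusted p = 0.0255). Mmp14 lost its call without chow 1, 2 or C7 or HFD 1 or 3 (limma adjusted p 0.0634 to 0.102) and Wnt2 without chow 2 (0.062). Dnase1l3 lost its call without chow 1, C7 or 4 or HFD 2 or 4 (limma adjusted p 0.0569 to 0.0701). Mmp14 lost the call with only HFD 2 and HFD 3 in HFD and with no minimum (limma adjusted p 0.0582 to 0.092). Wnt2 lost the call with only HFD 2 and HFD 3 in HFD (limma adjusted p 0.105). Dnase1l3 lost the call with only HFD 2 and HFD 3 in HFD and on the RPKM scale (limma adjusted p 0.0525 to 0.147). Stellate cell and matrix genes gave 3 calls in all, but 5 with only HFD 2 and HFD 3 in HFD, 1 on the RPKM scale (15 tested) and 12 without HFD 1.

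Of 11 cholangiocyte and progenitor markers tested, 3 rose and 0 fell by limma (6 and 0 at an unadjusted p under 0.05, 3 and 0 by voom) and all 11 had a change above 0 (median 0.70). Krt23, a stress-inducible keratin, was at 0.368, 0.562, 0.264 and 0.277 RPM in the chow libraries and 3.33, 4.17, 2.57 and 5.59 RPM in the HFD libraries. Krt23 had a log2 change of 2.31 with SE 0.30 (limma adjusted p = 4.08e-04). Every chow library held less than 1 RPM of Krt23, so it was tested only because of the libraries on the high-fat diet. Of 22 members on the list 11 were not tested. Krt8, a keratin hepatocytes also hold, was at 46.9, 44.6, 56.2 and 41.7 RPM in the chow libraries and 55.0, 98.4, 90.8 and 129 RPM in the HFD libraries (log2 change 0.92 with SE 0.19, limma adjusted p = 0.00899), and Afp, the fetal albumin-like protein, averaged 1.40 ± 0.458 RPM in chow and 2.98 ± 0.683 RPM in HFD. Afp had a log2 change of 0.88 with SE 0.19 (limma adjusted p = 0.0107). The duct markers Krt19, at 0.644, 0.375, 0.705 and 0.555 RPM in the chow libraries and 0, 0.388, 0.249 and 0.529 RPM in the HFD libraries, and Epcam, at 0.644, 0.656, 0.264 and 0.370 RPM in the chow libraries and 0.381, 0.582, 0.581 and 0.982 RPM in the HFD libraries, were too low to be tested and did not separate the diets. Cholangiocyte and progenitor markers gave 3 calls in all, but 1 on the RPKM scale (4 tested) or with a minimum of 5 RPM (6 tested) and 6 without HFD 1.

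Among adipocyte markers 5 of 8 tested rose and 0 fell by limma, with 5 higher and 1 lower at an unadjusted p under 0.05 and 5 and 0 by voom (median 0.90). The risers were Cidec, Cidea, Lipe, Cfd and Car3. Of 15 members on the list 7 did not reach the minimum for a test. Cidea and Cfd would not have reached it without the libraries on the high-fat diet, so the counts are partly set by that minimum. The summed level was 520.1, 488, 565 and 467 RPM in the chow libraries and 1081, 1248, 1151 and 608 RPM in the HFD libraries. Car3, which liver holds as well, made up most of this sum, with 389 RPM in chow 4 and 469.7 RPM in HFD 4. Of the defining markers, Adipoq was at 0, 0, 0.969 and 0 RPM in the chow libraries and 0, 1.84, 0.166 and 0 RPM in the HFD libraries, Plin1 at 0, 0, 0.705 and 0.0925 RPM in the chow libraries and 0, 0.485, 0 and 0 RPM in the HFD libraries and Lep at 0, 0, 0 and 0 RPM in the chow libraries and 0, 0.0970, 0 and 0 RPM in the HFD libraries. Adipoq and Plin1 were thus seen mainly in HFD 2 and chow C7, and Ucp1 had no read in any of the 8 libraries. The part of adipose tissue in Cidea, Cfd, Cidec, Lipe and Car3 was not tested. Red cell markers rose in 4 of 7 tested and fell in 0 by limma, with the same counts at an unadjusted p under 0.05 and by voom (median 1.95). All 4 risers were globins. Hbb-b1 was at 11.2, 21.7, 10.4 and 49.5 RPM in the chow libraries and 58.9, 107, 63.9 and 115 RPM in the HFD libraries. Hbb-b1 had a log2 change of 2.10 with SE 0.41 (limma adjusted p = 0.00546). Hba-a1 and Hba-a2 held identical values, so they count as 1 measurement. Alas2 was not called (log2 change 0.00 with SE 0.14, limma adjusted p = 0.994) and the part of blood in the globin values was not tested. Pancreas and intestine markers were at 0 in all 8 libraries for 14 genes, and the 3 of 4 tested that rose (limma; 0 fell, 3 higher and 1 lower at an unadjusted p under 0.05, 2 and 0 by voom) were Fabp2, Cela2a, which overlaps Casp9, and Slc10a2, the bile acid transporter ASBT, at 1.56, 1.5, 1.32 and 1.39 RPM in the chow libraries and 4.76, 3.39, 3.32 and 5.74 RPM in the HFD libraries. Slc10a2 had a log2 change of 1.28 with SE 0.34 (limma adjusted p = 0.0299). No defining exocrine or intestinal gene such as Prss1 or Sis reached the minimum for a test. Slc10a2 lost its call without chow 1, 2, C7 or 4 or HFD 1 or 4 (limma adjusted p 0.0572 to 0.0712). Slc10a2 lost the call with only HFD 2 and HFD 3 in HFD, with no minimum and under voom (limma adjusted p 0.0548 to 0.175). Adipocyte markers gave 5 calls in all, but 3 on the RPKM scale (6 tested) or with a minimum of 5 RPM (5 tested). Pancreas and intestine markers gave 3 calls in all, but 1 with only HFD 2 and HFD 3 in HFD.

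**Figure D5:**
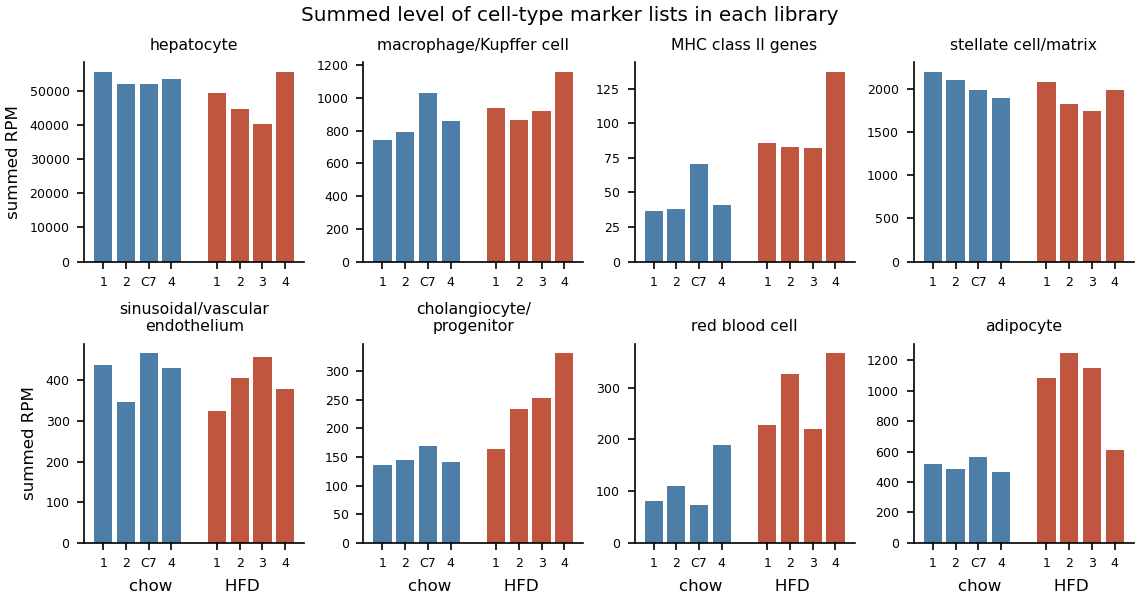
Summed level of the members of 8 marker lists in each library (bars, RPM, axis from 0), with chow in blue and HFD in red. Hepatocyte and macrophage sums overlap between the diets, while MHC class II, red cell and adipocyte sums are higher in every HFD library, with HFD 4 the lowest HFD library for adipocyte markers (608 RPM). Most of the adipocyte sum is Car3, which was at 469.7 RPM in HFD 4.

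Hepatocyte markers gave 6 falls and no rise among 22 tested by limma, with 8 lower and 0 higher at an unadjusted p under 0.05 and 6 and 0 by voom (median -0.18). Alb was at 18482, 15798, 12949.8 and 15569.6 RPM in the chow libraries and 15575, 14868, 11652 and 20597 RPM in the HFD libraries, with no separation of the diets (log2 change -0.02 with SE 0.35, limma adjusted p = 0.978), and Ttr was at 1509.7, 1601, 1358 and 1583 RPM in the chow libraries and 1340.4, 1339, 1411 and 1445 RPM in the HFD libraries. Ttr had a log2 change of -0.13 with SE 0.14 (limma adjusted p = 0.622). Hnf4a, the nuclear receptor that maintains hepatocyte identity, was at 470.1, 475, 531 and 501 RPM in the chow libraries and 353, 271, 266 and 276 RPM in the HFD libraries, with HFD 1 nearest to chow. Hnf4a had a log2 change of -0.77 with SE 0.11 (limma adjusted p = 9.27e-04). Among hepatocyte transcription factors, 5 of 41 rose and 4 fell. Nfia averaged 52.5 ± 3.27 RPM in chow and 35.0 ± 1.11 RPM in HFD (log2 change -0.58 with SE 0.08, limma adjusted p = 4.54e-04), and Cebpa, which drives metabolic genes of hepatocytes, averaged 172 ± 12.3 RPM in chow and 251 ± 21.8 RPM in HFD (log2 change 0.54 with SE 0.11, limma adjusted p = 0.00746). Hepatocyte markers gave 6 calls in all, but 1 without HFD 2 or with no minimum, 2 without chow 2 or 4 or HFD 3 and 3 without chow 1. Hepatocyte transcription factors gave 9 calls in all, but 5 without chow 2 or HFD 3 or on the RPKM scale (24 tested) and 4 without chow 1.

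Acute phase and complement genes gave 2 rises and 7 falls among 46 tested (median -0.17). Il1r1, the interleukin-1 receptor, was at 37.2, 39.5, 58.4 and 42.8 RPM in the chow libraries and 11, 17.0, 15.8 and 7.78 RPM in the HFD libraries. Il1r1 had a log2 change of -1.79 with SE 0.23 (limma adjusted p = 3.29e-04). Lbp, which carries lipopolysaccharide, was at 51.0, 57.3, 65.3 and 58.2 RPM in the chow libraries and 20.7, 23.7, 19.2 and 17.1 RPM in the HFD libraries. Lbp had a log2 change of -1.5 with SE 0.21 (limma adjusted p = 5.05e-04). Orm2 averaged 50.3 ± 13.5 RPM in chow and 14.6 ± 6.09 RPM in HFD (log2 change -1.80 with SE 0.44, limma adjusted p = 0.0187), and Crp averaged 239.8 ± 19.1 RPM in chow and 172 ± 14.0 RPM in HFD. Crp had a log2 change of -0.48 with SE 0.12 (limma adjusted p = 0.0195). Saa1, a strongly induced acute phase protein, was at 384, 353, 802 and 748 RPM in the chow libraries and 300.4, 39.2, 52.1 and 106 RPM in the HFD libraries, with HFD 1 nearest to chow, and was not called. Saa1 had a log2 change of -2.56 with SE 1.06 (limma adjusted p = 0.142). Coagulation factors and serpins gave 6 rises and 8 falls among 41 tested (median -0.02). All 3 fibrinogen chains fell, with Fga from 2631 ± 289.9 to 1379.7 ± 267 RPM (log2 change -0.94 with SE 0.22, limma adjusted p = 0.0147), Fgb (-0.71, limma adjusted p = 0.0336) and Fgg (-0.68, limma adjusted p = 0.0303). Serpina12, the adipokine vaspin, was at 4.05, 5.44, 10.3 and 3.05 RPM in the chow libraries and 20.9, 35.3, 37.0 and 14.1 RPM in the HFD libraries (log2 change 2.17 with SE 0.35, limma adjusted p = 0.00165), and Serpina7, thyroxine-binding globulin, averaged 7.07 ± 3.86 RPM in chow and 42.6 ± 15.5 RPM in HFD. Serpina7 had a log2 change of 2.56 with SE 0.37 (limma adjusted p = 8.05e-04). Serpina1e, an antitrypsin gene with near-identical copies, averaged 2892 ± 719 RPM in chow and 1170.4 ± 475 RPM in HFD (log2 change -1.36 with SE 0.35, limma adjusted p = 0.0241). Orm2 lost its call without chow 4 or HFD 2 or 3 (limma adjusted p 0.0538 to 0.06) and Crp without chow 2 or HFD 3 (0.0586 to 0.0672). Fga lost its call without HFD 2 (limma adjusted p 0.0532) and Fgb without chow 2, C7 or 4 or HFD 2 or 3 (0.0791 to 0.107). Fgg lost its call without chow 2, C7 or 4 or HFD 2 or 3 (limma adjusted p 0.0692 to 0.0964) and Serpina1e without chow 1, 2 or C7 or HFD 2 or 3 (0.0539 to 0.0793). Crp lost the call with only HFD 2 and HFD 3 in HFD (limma adjusted p 0.0545). Fga, Fgb, Fgg and Serpina1e lost the call with no minimum (limma adjusted p 0.059 to 0.11). Acute phase and complement gave 9 calls in all, but 15 with only the 8 chow and HFD libraries, 4 without chow C7 or HFD 2, 2 without HFD 3, 5 without chow 1 or 4 or HFD 4 and 3 without chow 2. Coagulation and serpins gave 14 calls in all, but 8 without chow 1 or C7 or with no minimum, 6 without HFD 2, 5 without HFD 3, 4 without chow 2 and 9 without chow 4.

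Genes that mark zones of the liver lobule gave 4 rises and 5 falls among 31 tested (median 0.01). Pck1, Arg1, Cps1 and Ass1, enzymes known for their high level around the portal vein, were among the fallers. Rgn, the calcium-binding regucalcin, was at 277, 246, 240.1 and 267 RPM in the chow libraries and 505, 495, 507 and 339 RPM in the HFD libraries, with HFD 4 nearest to chow. Rgn had a log2 change of 0.82 with SE 0.14 (limma adjusted p = 0.00217). Lect2, a secreted protein of hepatocytes, averaged 35.3 ± 3.59 RPM in chow and 55.7 ± 8.40 RPM in HFD. Lect2 had a log2 change of 0.64 with SE 0.12 (limma adjusted p = 0.00372). Insulin and growth factor signalling gave 3 rises and 3 falls among 35 tested (median 0.05). Beside the fall of Fgfr4 and Igfbp1, Akt1, a kinase below the insulin receptor, averaged 20.8 ± 2.21 RPM in chow and 15.6 ± 1.25 RPM in HFD (log2 change -0.40 with SE 0.11, limma adjusted p = 0.0373), and Met, the receptor of hepatocyte growth factor, averaged 38.3 ± 3.09 RPM in chow and 50.5 ± 2.48 RPM in HFD. Met had a log2 change of 0.40 with SE 0.10 (limma adjusted p = 0.0181). Fgfr3 (0.43, limma adjusted p = 0.0436) and Erbb4 (0.73, limma adjusted p = 0.0422), further receptor kinases, rose. Akt1 lost its call without chow 1, 2 or 4 or HFD 2, 3 or 4 (limma adjusted p 0.0665 to 0.112) and Met without chow 1 (0.0579). Fgfr3 lost its call without chow 1, 2, C7 or 4 or HFD 1, 2 or 3 (limma adjusted p 0.0635 to 0.121) and Erbb4 without chow 1, 2 or C7 or HFD 2, 3 or 4 (0.0706 to 0.127). Akt1 and Erbb4 lost the call with only HFD 2 and HFD 3 in HFD and with no minimum (limma adjusted p 0.0512 to 0.144). Met lost the call with only HFD 2 and HFD 3 in HFD (limma adjusted p 0.0825). Fgfr3 lost the call with only HFD 2 and HFD 3 in HFD, on the RPKM scale, with equal library medians and with no minimum (limma adjusted p 0.0564 to 0.0947). Pericentral and periportal genes gave 9 calls in all, but 5 without chow 4 or HFD 3 or with no minimum, 4 without HFD 2 and 3 without chow 1 or 2. Insulin and growth factor signalling gave 6 calls in all, but 2 without HFD 3 or with only HFD 2 and HFD 3 in HFD, 3 without chow 2 or C7 or HFD 2, on the RPKM scale (20 tested) or with no minimum and 1 without chow 1.

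Genes under growth hormone and sex-biased control gave 4 rises and 3 falls among 30 tested. Ghr, the growth hormone receptor, was at 166, 164, 149 and 159.8 RPM in the chow libraries and 288, 287, 267 and 222 RPM in the HFD libraries. Ghr had a log2 change of 0.73 with SE 0.11 (limma adjusted p = 9.28e-04). Cux2, a repressor that is female-biased in mouse liver, had 128 reads over chow and 15 over HFD, a ratio of 9.0 (exact 95% interval 5.26 to 16.6) (log2 change -2.04 with SE 0.41, limma adjusted p = 0.00653). Mup7 was at 1758, 2875, 3564 and 2362 RPM in the chow libraries and 5532, 2707, 2057 and 174 RPM in the HFD libraries, from the highest to the lowest of all libraries within HFD, and was not called. Mup7 had a log2 change of -0.75 with SE 0.75 (limma adjusted p = 0.573). Near-identical Mup genes may share reads.

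Circadian genes gave 6 rises and 2 falls among 32 tested (median 0.27). Dbp, a clock output factor, was at 43.2, 50.5, 25.3 and 57.6 RPM in the chow libraries and 116, 90.3, 112 and 119 RPM in the HFD libraries (log2 change 1.35 with SE 0.22, limma adjusted p = 0.00165) and overlaps Sphk2. Per2 averaged 13.7 ± 5.32 RPM in chow and 32.0 ± 2.90 RPM in HFD (log2 change 1.28 with SE 0.26, limma adjusted p = 0.00706), and Wee1, a clock-controlled kinase of the cell cycle, was at 2.94, 2.91, 1.32 and 5.18 RPM in the chow libraries and 13.8, 11.1, 12.2 and 9.89 RPM in the HFD libraries. Wee1 had a log2 change of 1.87 with SE 0.39 (limma adjusted p = 0.00821). Chow C7 was the lowest library for all 3. Avpr1a, the vasopressin receptor, fell, with chow C7 the highest library at 19.1 RPM (log2 change -1.54 with SE 0.25, limma adjusted p = 0.00188). The labels used here give no time of day for the harvest. Circadian clock and output gave 8 calls in all, but 5 on the RPKM scale (25 tested).

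Of 41 endoplasmic reticulum (ER) stress and heat shock genes tested, 4 rose and 8 fell, and all of the fallers but Fkbp5, as well as Pdia6 (0.51, limma adjusted p = 0.0456) among the risers, act in the ER. Creld2 was at 11.1, 13.6, 13.3 and 10.7 RPM in the chow libraries and 6.28, 4.27, 4.4 and 4.45 RPM in the HFD libraries. Creld2 had a log2 change of -1.25 with SE 0.16 (limma adjusted p = 3.29e-04). Hyou1, an ER chaperone, averaged 61.5 ± 10.6 RPM in chow and 29.5 ± 6.12 RPM in HFD (log2 change -1.05 with SE 0.20, limma adjusted p = 0.00476), and Manf (-0.91, limma adjusted p = 0.0088), Dnajb9 (-0.65, limma adjusted p = 0.0186), Hspa5 (-0.61, limma adjusted p = 0.0255) and Herpud1 (-0.64, limma adjusted p = 0.0351) fell. Hspb1, a small heat shock protein, was at 3.50, 3.75, 5.20 and 3.70 RPM in the chow libraries and 7.43, 19.7, 8.80 and 13.2 RPM in the HFD libraries. Hspb1 had a log2 change of 1.41 with SE 0.26 (limma adjusted p = 0.00434). Of 35 cell cycle and p53 genes tested, 2 rose and 2 fell. Ccnd1, cyclin D1, was at 4.78, 3.37, 3.79 and 3.70 RPM in the chow libraries and 15.4, 16.8, 21.4 and 68.6 RPM in the HFD libraries, with HFD 4 far above the rest. Ccnd1 had a log2 change of 2.54 with SE 0.36 (limma adjusted p = 6.31e-04). Gadd45b averaged 3.95 ± 0.608 RPM in chow and 0.658 ± 0.365 RPM in HFD (log2 change -1.99 with SE 0.25, limma adjusted p = 2.52e-04) and its relative Gadd45a went the other way (1.56, limma adjusted p = 0.0041), although a transcript over Gadd45a, E230016M11Rik, holds more reads. The proliferation markers Mki67 and Top2a did not reach the minimum for a test. Pdia6 lost its call without chow 1, 2, C7 or 4 or HFD 1, 2 or 4 (limma adjusted p 0.0584 to 0.136) and Dnajb9 without chow 1 or 2 or HFD 2 (0.0602 to 0.0625). Hspa5 lost its call without chow 1 or C7 or HFD 2 or 3 (limma adjusted p 0.0548 to 0.0722) and Herpud1 without chow 1, 2 or C7 or HFD 1, 2, 3 or 4 (0.0546 to 0.0918). Pdia6 lost the call with only HFD 2 and HFD 3 in HFD, on the RPKM scale, with equal library medians and with no minimum (limma adjusted p 0.0594 to 0.162). Hspa5 lost the call with only HFD 2 and HFD 3 in HFD (limma adjusted p 0.0788). Herpud1 lost the call with only HFD 2 and HFD 3 in HFD, on the RPKM scale and with no minimum (limma adjusted p 0.0501 to 0.117). ER stress and heat shock gave 12 calls in all, but 5 without HFD 2 and 7 without chow 1, 2 or C7 or HFD 3.

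Sphingolipid enzymes gave 3 rises and 1 fall among 29 tested. Smpd3, a neutral sphingomyelinase that makes ceramide, was at 1.01, 1.03, 0.969 and 0.647 RPM in the chow libraries and 4.86, 6.69, 5.73 and 6.27 RPM in the HFD libraries. Smpd3 had a log2 change of 2.17 with SE 0.22 (limma adjusted p = 4.90e-05). St3gal5, which makes the ganglioside GM3, was at 236, 219, 219 and 217 RPM in the chow libraries and 52.1, 86.1, 95.8 and 106 RPM in the HFD libraries. St3gal5 had a log2 change of -1.43 with SE 0.19 (limma adjusted p = 5.05e-04). Solute carriers gave 7 rises and 7 falls among 60 tested. Slco2a1, the prostaglandin transporter, averaged 31.0 ± 1.17 RPM in chow and 15.0 ± 4.58 RPM in HFD (log2 change -1.07 with SE 0.18, limma adjusted p = 0.00179), and Slc38a3, a glutamine transporter, averaged 524 ± 75.2 RPM in chow and 881 ± 181 RPM in HFD. Slc38a3 had a log2 change of 0.74 with SE 0.19 (limma adjusted p = 0.0224). Among secreted liver hormones, 4 of 25 rose and 6 fell. Inhbe, the hepatokine activin E subunit, was at 25.3, 23.8, 17.3 and 15.5 RPM in the chow libraries and 50.6, 65.7, 61.6 and 37.5 RPM in the HFD libraries (log2 change 1.37 with SE 0.28, limma adjusted p = 0.00741), and Agt, angiotensinogen, averaged 396 ± 52.0 RPM in chow and 239.8 ± 46.1 RPM in HFD. Agt had a log2 change of -0.73 with SE 0.15 (limma adjusted p = 0.00709). Iron, heme and retinoid genes gave 4 rises and 6 falls among 44 tested, including Id1, a target of iron-sensing BMP signals, which averaged 1.89 ± 0.675 RPM in chow and 4.58 ± 1.17 RPM in HFD (log2 change 1.10 with SE 0.25, limma adjusted p = 0.0127), and Tfrc, the transferrin receptor, which fell (-1.03, limma adjusted p = 0.0374). Slc38a3 lost its call without chow 2, C7 or 4 (limma adjusted p 0.0509 to 0.0646) and Tfrc without chow 1, 2, C7 or 4 or HFD 1, 2 or 4 (0.0513 to 0.1). Slc38a3 and Id1 lost the call with only HFD 2 and HFD 3 in HFD (limma adjusted p 0.0843 to 0.132). Tfrc lost the call with only HFD 2 and HFD 3 in HFD and with no minimum (limma adjusted p 0.0627 to 0.161). Sphingolipid and ceramide enzymes gave 4 calls in all, but 2 without chow C7 or HFD 4 or with only HFD 2 and HFD 3 in HFD. Solute carriers gave 14 calls in all, but 8 on the RPKM scale (44 tested), 6 without HFD 2, 9 without HFD 3, 7 without chow 1 and 4 without chow 2. Secreted liver hormones gave 10 calls in all, but 6 without HFD 3. Iron, heme and retinoid metabolism gave 10 calls in all, but 4 without chow 1 or 2 or HFD 3, with only HFD 2 and HFD 3 in HFD or with no minimum, 5 without chow C7 or on the RPKM scale (36 tested) and 6 without HFD 1 or 2.

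Of 53 oxidative phosphorylation subunits tested, Ndufs1 (0.30, limma adjusted p = 0.0423) and Uqcrc2 (0.28, limma adjusted p = 0.045) rose and 0 fell by limma, with 5 higher and 2 lower at an unadjusted p under 0.05 and 2 and 0 by voom (median 0.08). Gm11602, which overlaps Ndufs1, holds 101.7% as many reads and was not called (log2 change 0.37). Cytosolic ribosomal proteins gave no rise and 4 falls among 53 tested by limma, with 0 higher and 23 lower at an unadjusted p under 0.05 and 0 and 4 by voom, and 51 of the 53 had a change below 0 (median -0.22). Their summed level was 2044, 2224, 2147 and 2192 RPM in the chow libraries and 1583, 1719, 1783 and 2199 RPM in the HFD libraries, so HFD 4 lay within the chow range. Ndufs1 lost its call without chow 1, 2, C7 or 4 or HFD 2, 3 or 4 (limma adjusted p 0.0603 to 0.124) and Uqcrc2 without chow 1, 2, C7 or 4 or HFD 2, 3 or 4 (0.0774 to 0.133). Ndufs1 lost the call with equal library medians (limma adjusted p 0.0501). Uqcrc2 lost the call with only the 8 chow and HFD libraries and with equal library medians (limma adjusted p 0.0534 to 0.0545). Cytosolic ribosomal proteins gave 4 calls in all, but 9 with only HFD 2 and HFD 3 in HFD, 7 with equal library medians, 2 without chow 4 or C7 or HFD 1, 2 or 3, 22 without HFD 4 and 1 without chow 2.

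The deposited RPKM was divided by genomic span, introns included, so a minimum of 0.5 RPKM in 4 libraries would have removed 6220 of the 12203 genes tested, with a median span of 41.6 kb against 10.6 kb for the 5983 others. These 6220 are named long-intron genes here for their low RPKM. No intron length was measured, so genes with few reads are among them. Of these 6220, 345 rose and 148 fell, 7.93% called, against 13.8% of the 5983, and the median chow level was 4.4 RPM against 18.4 RPM. They include Osbpl3, Cidea, Wdfy4, Ntrk2, Gbp10, Tmprss11f, Cyp2b10, Asns, Plcd3, Ptchd4 and Cyp26b1. Of the others with large changes, Gm19619 was at 0.736, 1.22, 1.23 and 0.462 RPM in the chow libraries and 2.86, 9.99, 9.46 and 11.4 RPM in the HFD libraries. Gm19619 had a log2 change of 2.55 with SE 0.39 (limma adjusted p = 0.00127). Fam73a, a protein that shapes mitochondria, was at 13.7, 9.65, 9.34 and 10.1 RPM in the chow libraries and 1.62, 2.42, 2.57 and 2.19 RPM in the HFD libraries (log2 change -2.05 with SE 0.20, limma adjusted p = 4.48e-05), and Scara5, a ferritin receptor, was at 10.4, 21.5, 43.5 and 16.5 RPM in the chow libraries and 2.76, 5.04, 3.90 and 3.62 RPM in the HFD libraries, with chow C7 the highest library. Scara5 had a log2 change of -2.27 with SE 0.46 (limma adjusted p = 0.00741). Gm7854 averaged 10.2 ± 2.29 RPM in chow and 1.88 ± 0.419 RPM in HFD but lies over Cpeb2, which holds more reads. Gm7854 had a log2 change of -2.16 with SE 0.18 (limma adjusted p = 1.00e-05). Reads in introns and in genes nested within them were part of these values. In 15 of 17 pairs in which a gene with at least 3000 reads lay inside a larger gene, the larger gene held at least 0.95 times the reads of the inner one. Among called genes, 231 of 1319, and 84 of the 493 called long-intron genes, overlapped a gene with at least 20% as many reads. The same share was not computed over all genes tested, so whether called genes overlap others more often was not tested. These totals are of whole genes, and how many reads lie where genes overlap was not measured. No stranded counting is stated, so reads from such a stretch cannot be told apart by strand. Emg1 over Lpcat3, Vps51 over Tm7sf2 and Oraov1 over Ccnd1 hold 32.0%, 35.3% and 28.8% as many reads as the gene they overlap. Scara5 lost the call with only HFD 2 and HFD 3 in HFD (limma adjusted p 0.0554).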

How the data were processed

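Liver RNA-seq of 12 libraries in 3 groups of 4 was analysed for HFD against chow. Per the submitters' processing notes, reads were aligned with Bowtie 0.12.7 to mouse build mm9, and the deposited table gives RPKM per transcript, as the authors computed it. How reads were filtered and counted, and against which annotation, is not given in the sources used here. The RPKM values were whole multiples of 1 read in all of the 27723 transcripts with a value above 0 (100%, largest deviation 5.24e-10 read), which gave back reads, library totals and the length used. That length was within 1% of the genomic span in 62.7% of 18620 transcripts with over 100 reads. Of 33763 transcripts, 2589 with a blank symbol were named by accession, 48 held a symbol turned into a date, and 16 unnamed ones were left out of the tests. The deposited ratio and test columns were not used, and 0 columns of other samples were present. One chow column, C7, carries a name that matches no sample title and was used as a chow library.

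RPM values with a pseudocount of 0.5 RPM were fitted with limma 3.58.1 (trend) in R 4.3.3 for genes with at least 1 RPM in at least 4 libraries, and adjusted by Benjamini-Hochberg. The fit was tested on simulated data. Tables and figures used Python 3.11.15 with pandas 2.3.3, numpy 2.4.6, scipy 1.17.1 and matplotlib 3.10.9. Exact 95% intervals of read ratios cover counting error only. The alternatives were other pseudocounts (0.1 and 2 RPM), no minimum or 5 RPM, the RPKM scale (minimum and pseudocount 0.5 RPKM), equal library medians, only the 8 chow and HFD libraries, voom weights on whole reads, leaving out each library and, chosen after seeing the data, only HFD 2 and HFD 3 in the HFD group.

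The members and the 41 lists were chosen with earlier results of these data known. Genes were named by rule: the 12 largest changes in each direction among called genes without overlap and with a mean of at least 2 RPM, up to 4 called members and the most abundant member of each list, the 8 largest changes in each direction among long-intron genes, and the 8 largest differences in RPM in each direction. Other genes were named for their role after their values were seen, and some genes are not reported here.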

Additional observations from a re-analysis of the deposited data

Results flagged for a closer look

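Within a group of 4 libraries, 1 library lay far from the other 3 in 40 of 468 groups of values examined, with a gap, as a share of the whole range, above Dixon's 95% critical value. For independent, normal values chance does this in about 1 in 20 groups. The values here are RPM of genes and of list sums that hold some of the same genes, so 40 of 468 cannot be set against that share. HFD 4 was that library in 14 groups, HFD 1 and chow C7 in 10 each, and chow 1 and chow 4 in 3 each.

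HFD 4 was the low library of its group for the summed cytochrome P450 families 2 and 3 (6975 RPM), the carboxylesterase Ces1d (249.0 RPM), Cyp2e1 (2721 RPM), Rgn (339 RPM), Car3 (469.7 RPM), Cd163 (0.680 RPM) and Akt1 (13.7 RPM). It was the high one for the summed MHC class II genes (137 RPM), H2-Ab1 (20.9 RPM), H2-Aa (30.4 RPM), the summed neutrophil markers (7.10 RPM), Ccnd1 (68.6 RPM), Fetub (170.0 RPM) and Enho (4.30 RPM). Ces1d, Rgn, Fetub and Car3 were nearer to chow in HFD 4 than in the other HFD libraries, and Ccnd1 and the MHC class II genes farther from it.

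HFD 1 was the low library for Osbpl3 (13 RPM), Lipa (112 RPM), Scp2 (1276 RPM) and Trp53inp1 (20.9 RPM), and the high one for Srebf1 (222 RPM), Hnf4a (353 RPM), Cebpa (283 RPM), Creld2 (6.28 RPM), Gbp7 (17.3 RPM) and Tap1 (31.8 RPM). Its Gbp7 and Tap1 were thus farther from chow than in the other HFD libraries, and its Osbpl3, Lipa, Scp2, Hnf4a and Creld2 nearer.

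Chow C7 was the low library for Scd1 (1241 RPM) and Tkt (24.0 RPM). It was the high one for the summed MHC class II genes (70.6 RPM), H2-Aa (13.3 RPM), the macrophage protease Ctss (13.1 RPM), the summed cell cycle and p53 genes (952 RPM), Cfd (1.32 RPM), Ntrk2 (1.5 RPM), Avpr1a (19.1 RPM) and Hspb1 (5.20 RPM). Chow 1 was high for Aqp4 (1.56 RPM), St3gal5 (236 RPM) and Fam73a (13.7 RPM), and chow 4 was high for Ces1d (251 RPM) and Hspa8 (428 RPM) and low for Smpd3 (0.647 RPM).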

How the results depend on the processing

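On the RPKM scale 766 of 6325 genes were called, 484 higher and 282 lower, against 1319 of 12203. This setting changes the scale, the minimum and the pseudocount together. This scale gives no value for the long-intron genes. Under the other alternatives that kept all 4 libraries of each group, the count ran from 1089 (no minimum) to 1529 (only the 8 chow and HFD libraries). Leaving out 1 library gave 781 to 1371 calls, 510 to 973 higher and 271 to 478 lower. It gave 269 to 572 calls among long-intron genes, against 493, and 158 to 266 among list members, against 275. Of 191 called genes whose statistics are given above, 130 kept the call in all 8 such fits. The genes named by rule that changed sign were uncalled ones. Their log2 changes were, for Cyp2e1, -0.0198 with equal library medians and -0.0572 to 0.19 without 1 library, and, likewise without 1 library, for Mup7 -1.37 to 0.30, for Serpina3k -0.0247 to 0.30 and for Alb -0.16 to 0.11. The cause was not tested. No paired analysis was possible because the titles of all 4 chow libraries carry the same replicate number. With up to 0.0970 RPM to a read, genes with less than 1 RPM in most libraries, such as Krt19, Epcam, Adipoq and Plin1, were not tested, and a missing call there says nothing on a difference.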
